A study of Mus musculus with 25 samples.

Results

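Cells that carried the red fluorescent protein tdTomato were sorted from mouse spinal cord 1 month after a contusion (1M, 3 libraries) and from sham-operated cord (sham, 3 libraries), and RNA was sequenced. The 6 libraries were taken by their labels from the 25 of the series, of which 11 were sorted cells. All animals carried GFAP-Cre-/+:R26-tdT-/+, so the reporter was switched on by a recombinase under a Gfap promoter, and it marks any cell that expresses that promoter or descends from a cell that once did. The 1M mice had a moderate contusion of 60 kdyn at thoracic level T9 and were kept for 1 month. The sham mice had the bone over T9 removed without a contusion and were kept for 7 days, so injury and time since surgery differ together between the groups and cannot be told apart. Each library pooled the cord epicenter of 3 mice, digested with papain and trypsin, cleared of myelin with beads and sorted by flow cytometry. The age and sex of the mice were not given in the labels used here. Sorted cells from 7 days after contusion (7D, 3 libraries) and from 3 months (3M, 2 libraries) entered the same fit. They share in its estimate of the spread, and their values are used below to place the 1M values in time.

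Astrocytes clear glutamate and GABA from synapses, buffer potassium, move water at their endfeet on blood vessels, couple through gap junctions and store glycogen. After a contusion they surround the lesion, divide and form a border against the fibroblasts, microglia and infiltrating macrophages of the lesion core. Gfap promoters are also active in ependymal cells and in neural progenitors, and progenitors give rise to several cell types, so a Gfap-driven reporter is not limited to astrocytes.

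The markers went against the label of the cells as astrocytes. Per kb of exon, the 14 markers of oligodendrocyte precursors, the dividing glia that give rise to oligodendrocytes, had a median level of 176 CPM (counts scaled to a common library total) in 1M and 153 CPM in sham. The 10 astrocyte markers had a median of 12.2 CPM per kb in 1M and 72.8 CPM per kb in sham. Olig1 reached 940 CPM per kb in 1M and 827 CPM per kb in sham, and Pdgfra, the receptor that defines the precursors, 267 and 231 CPM per kb in the same order. Gfap itself stood at 55.2 CPM per kb in 1M and 57.0 CPM per kb in sham. The cells are therefore called tdTomato-sorted cells here, and astrocyte genes are described as the genes of 1 cell type among several.

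Total counts were 36537469, 50211071 and 34387984 in 1M replicates 1 to 3, and 33968822, 26982698 and 15712423 in sham replicates 1 to 3. Between 21270 and 23742 genes had at least 1 count in a 1M library and between 18733 and 27237 in a sham library. Correlations of log2 CPM between replicates were 0.922 to 0.938 in 1M and 0.874 to 0.924 in sham. The sham libraries spread along the first principal component, at -61.6, -134 and -216 for replicates 1 to 3. On the second component sham replicate 3 stood apart at -135, against 64.2 and 132 for sham replicates 1 and 2. Sham replicate 1 carried more RNA of microglia and macrophages than the other sham libraries, with summed macrophage and microglia markers of 1205 CPM, against 346 CPM in sham replicate 2 and 325 CPM in sham replicate 3. Sham replicate 3 carried more RNA of Schwann cells, with 1372 CPM of summed markers, against 312.5 CPM in sham replicate 1 and 206.8 CPM in sham replicate 2. Results that rest on either library are given with and without it.

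**Figure D1:**
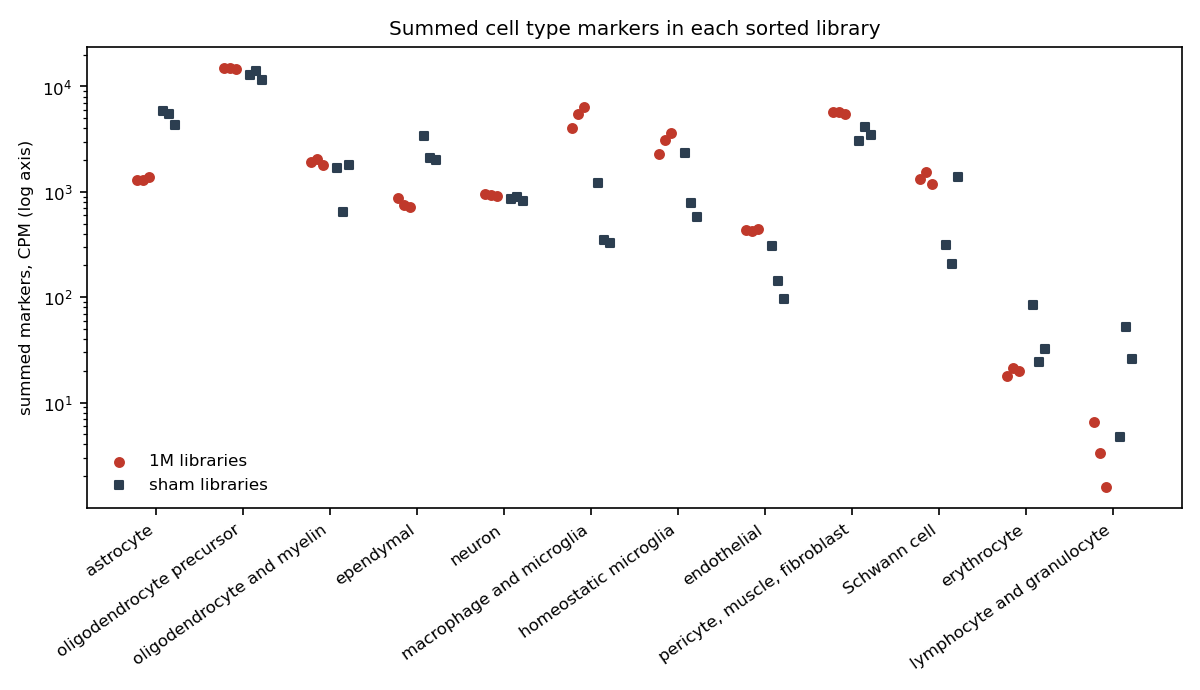
Summed CPM of the tested markers of 12 cell types in each 1M library (red circles) and each sham library (dark squares), on a log axis. The 1M libraries lie below the sham libraries for astrocyte markers (1300 to 1380 CPM in 1M, 4340 to 5890 CPM in sham) and ependymal markers, and above them for macrophage and microglia markers (4040 to 6410 CPM in 1M, 325 to 1210 CPM in sham), while precursor markers are the most abundant set in both groups.

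Of 24286 genes tested, 2927 (12.1%) were called at an edgeR Benjamini-Hochberg adjusted p under 0.05. Of these, 1512 (6.23% of genes tested) were higher in 1M and 1415 (5.83%) were lower. Of protein-coding genes 8.6% were called higher and 7.84% lower, and of long non-coding RNAs 1.38% and 1.73%. Without 1M replicate 2 the count over all genes was 1806, and without 1M replicate 3 it was 1727. In 6669 genes (27.5%) the 1M and sham libraries did not overlap in CPM. Many genes described below were picked for a large change, so a lack of overlap in them is no separate result. The median log2 change over all genes tested was -0.018. The common biological coefficient of variation was 0.63. Log2 changes below are 1M over sham with their standard error, and CPM values are given for replicates 1 to 3 in order. P-values set each change against the spread between pooled libraries, which was estimated from all 11 sorted libraries. Where leaving out 1 library ended or made a call, turned the direction or moved the change by more than 1.5-fold, the value without it follows. In bulk RNA, fewer cells of a type and less RNA per cell cannot be told apart.

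**Figure D2:**
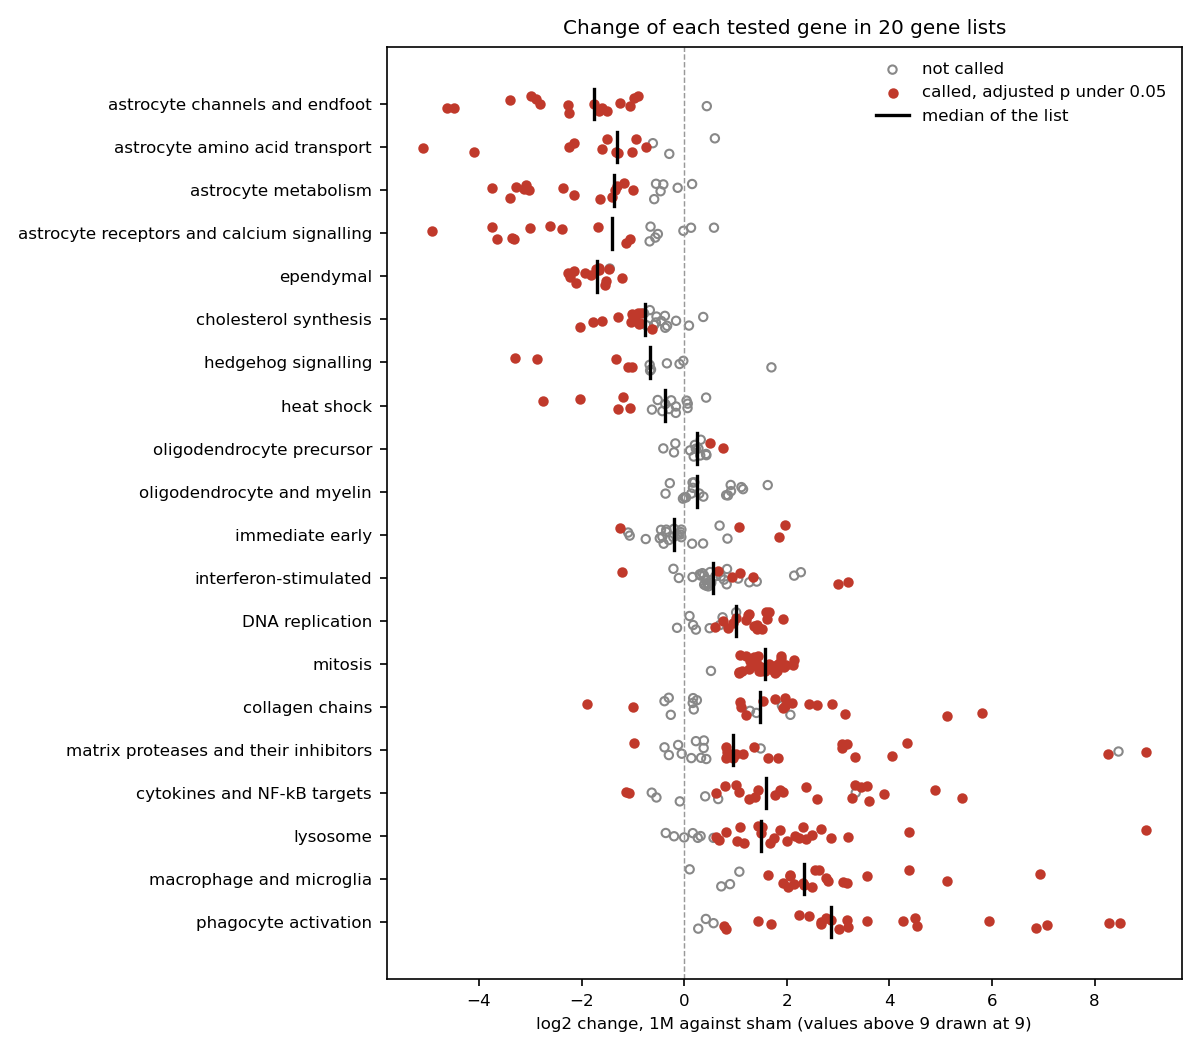
Log2 change of 1M against sham for each tested gene of 20 gene lists. Filled points were called at an adjusted p under 0.05, open points were not, and the black bars mark list medians. Astrocyte channels (median -1.76), ependymal genes (median -1.69) and cholesterol synthesis (median -0.76) lie to the left of 0. Phagocyte activation (median 2.86), lysosome (median 1.51) and mitosis (median 1.57) lie to the right, and precursor genes (median 0.25) close to 0.

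Genes by which astrocytes take up and recycle transmitters were lower in 1M. Of the transport and glutamine synthesis list, 11 of 14 tested genes fell and none rose, with a median log2 change of -1.31 and 9 to 12 calls when any 1 library was left out. Slc6a11, the GABA transporter GAT-3, had 45, 43.1 and 33.5 CPM in 1M, against 816, 758 and 498 CPM in sham (log2 change -4.09 ± 0.26, edgeR adjusted p = 1.9e-07). Slc6a9, a glycine transporter, had 47.7, 66.1 and 41 CPM in 1M, against 242, 247 and 197 CPM in sham (log2 change -2.15 ± 0.20, edgeR adjusted p = 8.79e-06). Slc25a18, a mitochondrial glutamate carrier, had 42.6, 29.95 and 35.3 CPM in 1M, against 217, 164 and 134 CPM in sham (log2 change -2.25 ± 0.25, edgeR adjusted p = 3.41e-05). In none of these 3 genes did the groups overlap. The glutamate transporters fell too. Slc1a2 (GLT-1) averaged 428 ± 29.2 CPM in 1M and 1304 ± 388 CPM in sham (log2 change -1.61 ± 0.22, edgeR adjusted p = 0.000214). Slc1a3 (GLAST) averaged 105 ± 5.6 CPM in 1M and 256 ± 107 CPM in sham (log2 change -1.29 ± 0.23, edgeR adjusted p = 0.0017). Glul, glutamine synthetase, averaged 314 ± 26.7 CPM in 1M and 479.7 ± 234 CPM in sham and was not called (log2 change -0.61 ± 0.25, edgeR adjusted p = 0.133). Glul was called without sham replicate 2 (log2 change -0.79, edgeR adjusted p = 0.0493) and without sham replicate 3 (log2 change -0.83, edgeR adjusted p = 0.0256). The summed list gave 1887 to 1943 CPM in 1M and 4409 to 6252 CPM in sham.

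The channel and endfoot list moved almost as a whole, with 16 of 17 tested genes lower, none higher, and a median log2 change of -1.76 (15 to 16 lower with any 1 library left out, 1 higher without sham replicate 1). Gja1, connexin 43 of astrocyte gap junctions, had 108, 103 and 88.5 CPM in 1M, against 935, 712 and 719.5 CPM in sham (log2 change -2.98 ± 0.23, edgeR adjusted p = 1.48e-06). Cldn10, a claudin, had 8.09, 9.6 and 13.6 CPM in 1M, against 112, 134 and 83 CPM in sham (log2 change -3.39 ± 0.32, edgeR adjusted p = 8.38e-06). Neither gene's groups overlapped. Gjb6, connexin 30, averaged 8.92 ± 4.8 CPM in 1M and 199.9 ± 31.1 CPM in sham (log2 change -4.48 ± 0.44, edgeR adjusted p = 1.16e-05). Car14, a membrane carbonic anhydrase, averaged 1.97 ± 0.201 CPM in 1M and 48.7 ± 3.71 CPM in sham (log2 change -4.62 ± 0.50, edgeR adjusted p = 2.27e-05). The potassium channel gene Kcnj10 (Kir4.1) had the smallest log2 change of the called members, averaging 389 ± 8.82 CPM in 1M and 723 ± 186 CPM in sham (log2 change -0.89 ± 0.18, edgeR adjusted p = 0.00336). Dag1, dystroglycan, was the only tested member that was not called (log2 change 0.44 ± 0.17, edgeR adjusted p = 0.11). Dag1 was called without sham replicate 1 (log2 change 0.57, edgeR adjusted p = 0.0243).

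Receptors of astrocytes were lower as well. In that list 11 of 18 tested genes fell and none rose, with a median log2 change of -1.41 (9 to 12 calls with any 1 library left out). Agt, angiotensinogen, had 15.4, 27.2 and 31 CPM in 1M, against 376, 323 and 225 CPM in sham (log2 change -3.65 ± 0.37, edgeR adjusted p = 1.48e-05). Ntsr2, a neurotensin receptor, averaged 28.3 ± 6.21 CPM in 1M and 289 ± 89 CPM in sham (log2 change -3.35 ± 0.25, edgeR adjusted p = 8.83e-07). Fgfr3, a fibroblast growth factor receptor, averaged 63.2 ± 12.7 CPM in 1M and 506 ± 69.3 CPM in sham (log2 change -3.00 ± 0.19, edgeR adjusted p = 1.38e-07). Gabra2, a GABA-A receptor subunit, had 5.34, 3.55 and 1.85 CPM in 1M, against 14.4, 80.7 and 48.6 CPM in sham (log2 change -3.74 ± 0.59, edgeR adjusted p = 0.000589). Gabra2 had a log2 change of -3.14 without sham replicate 2. The libraries of these 4 genes did not overlap between groups. Grm5, a metabotropic glutamate receptor, averaged 203 ± 13.2 CPM in 1M and 185 ± 23.9 CPM in sham and was not called (log2 change 0.13 ± 0.16, edgeR adjusted p = 0.676).

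Metabolic genes of astrocytes fell in 14 of 20 tested members, with none higher and a median log2 change of -1.37 (12 to 15 calls with any 1 library left out). Pygm, a glycogen phosphorylase, had 8.41, 5.66 and 13.1 CPM in 1M, against 115, 118 and 129 CPM in sham (log2 change -3.74 ± 0.33, edgeR adjusted p = 5.05e-06). Cbs, which makes cystathionine from homocysteine, had 7.08, 9.7 and 6.15 CPM in 1M, against 66.2, 96.7 and 60.02 CPM in sham (log2 change -3.28 ± 0.34, edgeR adjusted p = 1.67e-05). Ppp1r3c, which directs a phosphatase to glycogen, averaged 23.2 ± 2.59 CPM in 1M and 103 ± 25.9 CPM in sham (log2 change -2.15 ± 0.31, edgeR adjusted p = 0.000294). None of the 3 overlapped between groups. The metallothioneins, which bind zinc and copper, fell too, with log2 changes of -1.34 for Mt1, -1.30 for Mt2 and -1.4 for Mt3. S100b and Fabp7 were not called (log2 change -0.41 ± 0.17, edgeR adjusted p = 0.141 for S100b, and log2 change 0.15 ± 0.16, edgeR adjusted p = 0.634 for Fabp7).

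**Figure D3:**
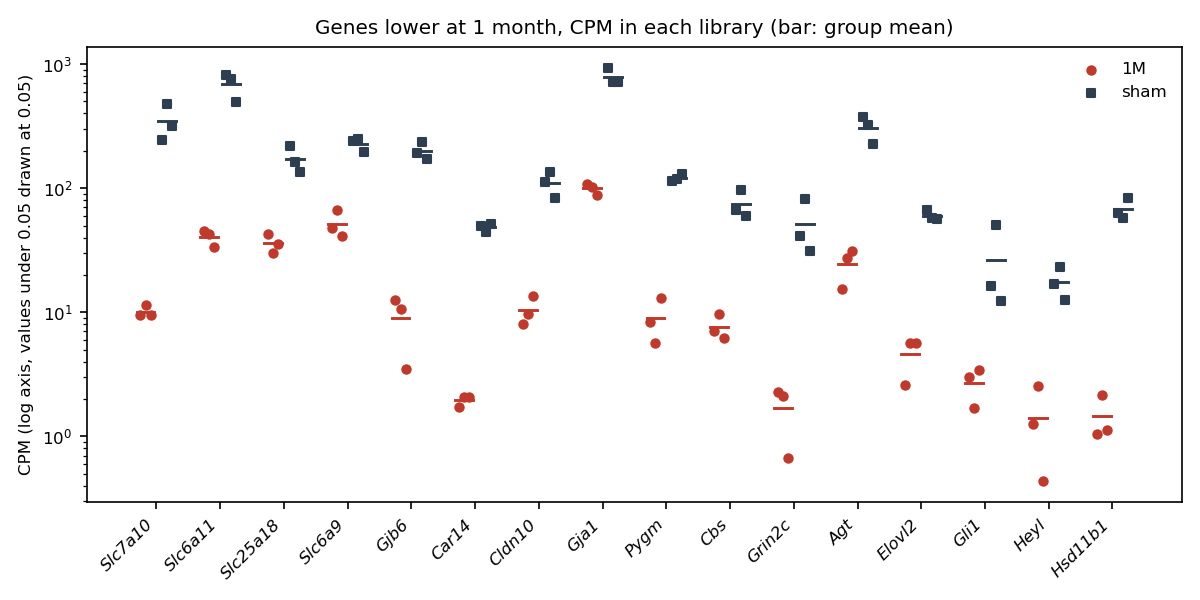
CPM of 16 genes lower at 1 month in each 1M library (red circles) and each sham library (dark squares), on a log axis with bars at group means. In each gene shown every 1M library lies below every sham library, which the naming rule required of Slc7a10, Car14, Grin2c and Hsd11b1. The others were named for a large change in their list or chosen after their values were seen. Their lack of overlap is thus no separate result. Slc7a10 averages 10.1 ± 1.13 CPM in 1M and 346 ± 121 CPM in sham, and Slc6a9 51.6 ± 13 CPM in 1M and 229 ± 27.9 CPM in sham (mean ± SD, n = 3 each).

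Transcription factors that shape astrocytes were lower in part: 7 of 19 tested genes fell and none rose, with a median log2 change of -0.23 (5 to 8 calls with any 1 library left out). Rfx4, a regulatory factor X protein of the neural tube, averaged 34 ± 3.45 CPM in 1M and 96.6 ± 11.9 CPM in sham (log2 change -1.51 ± 0.19, edgeR adjusted p = 9.87e-05). Sox9, which sets up glial fate, averaged 104 ± 12.9 CPM in 1M and 282 ± 162 CPM in sham (log2 change -1.43 ± 0.38, edgeR adjusted p = 0.0208). Sox9 was not called without sham replicate 1 or 1M replicates 1, 2 or 3 (edgeR adjusted p = 0.0525 to 0.1). Hopx, a homeodomain-only protein, had 15.4, 16.1 and 11.1 CPM in 1M, against 69.1, 40.6 and 23.3 CPM in sham (log2 change -1.64 ± 0.32, edgeR adjusted p = 0.00289). The nuclear factor I genes lay close to 0: Nfia -0.03 ± 0.17, Nfib -0.07 ± 0.17 and Nfix -0.02 ± 0.17 in log2, none called. Of the astrocyte markers, 9 of 10 tested were lower, with a median log2 change of -2.58. Markers such as Slc1a2, Gja1, Fgfr3 and Sox9 are also members of these lists, so the markers add no separate evidence. The marker that was not called was Gfap (log2 change -0.05, edgeR adjusted p = 0.94). The part of cell composition in the falls was not tested.

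The largest falls by the naming rule included Itih3, an inter-alpha-trypsin inhibitor chain, Etnppl, which breaks down phosphoethanolamine, and Hsd11b1, which makes active glucocorticoid from its inactive form. Itih3 averaged 9.39 ± 2.84 CPM in 1M and 287 ± 129 CPM in sham (log2 change -4.93 ± 0.34, edgeR adjusted p = 4.04e-07). Hsd11b1 averaged 1.45 ± 0.629 CPM in 1M and 68 ± 14.1 CPM in sham (log2 change -5.54 ± 0.42, edgeR adjusted p = 1.16e-06). Etnppl had 2, 1.37 and 0.317 CPM in 1M, against 51.4, 35.2 and 47.6 CPM in sham (log2 change -5.17 ± 0.55, edgeR adjusted p = 2.24e-05). Dao, D-amino acid oxidase, had 0.401, 0 and 1.27 CPM in 1M, against 17.4, 26.1 and 23.1 CPM in sham (log2 change -5.34 ± 1.23, edgeR adjusted p = 0.00919). Dao had a log2 change of -4.71 without 1M replicate 2 and -6.85 without 1M replicate 3. Ucp3, a mitochondrial uncoupling protein, had 0.16, 0.677 and 0 CPM in 1M, against 10.1, 21.4 and 10.7 CPM in sham (log2 change -5.59 ± 1.16, edgeR adjusted p = 0.00447). Ucp3 had a log2 change of -7.32 without 1M replicate 2. Etnppl, Dao and Ucp3 were near the limit of detection in 1M. The naming rule took only genes whose groups did not overlap, so the lack of overlap in the genes of this paragraph is no further result. Kirrel2, an adhesion protein, averaged 0.196 ± 0.339 CPM in 1M and 11.3 ± 2.51 CPM in sham (log2 change -5.84 ± 1.4, edgeR adjusted p = 0.0116). Kirrel2 had a log2 change of -5.20 without 1M replicate 2 and had no 1M count left without 1M replicate 1. The potassium channel subunits Kcnc4 and Kcng4 averaged 0.949 ± 0.839 and 0.734 ± 0.191 CPM in 1M, and 28.4 ± 8.28 and 17.5 ± 6.68 CPM in sham (log2 change -4.87 ± 0.81, edgeR adjusted p = 0.00088 for Kcnc4, and log2 change -4.57 ± 1.00, edgeR adjusted p = 0.00675 for Kcng4). Kcnc4 had a log2 change of -5.88 without 1M replicate 2. Exoc3l4, an exocyst-like protein, averaged 1.11 ± 0.664 CPM in 1M and 26.1 ± 18 CPM in sham (log2 change -4.57 ± 0.75, edgeR adjusted p = 0.000786). Exoc3l4 had a log2 change of -3.85 without sham replicate 2.

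Genes of ependymal cells, which line the central canal and beat its fluid with motile cilia, were lower too. Of the ependymal markers 13 of 14 tested genes fell and none rose, with a median log2 change of -1.69 and summed levels of 710 to 865 CPM in 1M, against 2010 to 3360 CPM in sham. Foxj1, the transcription factor of motile cilia, had 184, 149 and 146 CPM in 1M, against 946, 281 and 293 CPM in sham (log2 change -1.67 ± 0.38, edgeR adjusted p = 0.00837). Foxj1 was not called without 1M replicate 2 (edgeR adjusted p = 0.0548) or without 1M replicate 3 (edgeR adjusted p = 0.054) and had a log2 change of -0.84 without sham replicate 1. Pifo, a protein of the ciliary base, had 8.01, 10.3 and 7.94 CPM in 1M, against 61.4, 23 and 41.9 CPM in sham (log2 change -2.26 ± 0.38, edgeR adjusted p = 0.000914). Ccdc153 averaged 59.5 ± 9.35 CPM in 1M and 256 ± 63.5 CPM in sham (log2 change -2.11 ± 0.29, edgeR adjusted p = 0.000221). The groups did not overlap in these 3 genes. Tmem212 averaged 25.4 ± 5.57 CPM in 1M and 118 ± 53.5 CPM in sham (log2 change -2.22 ± 0.40, edgeR adjusted p = 0.00168).

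Genes of sterol synthesis were lower in 1M at early and late steps of the pathway. Of the cholesterol list 13 of 26 tested genes fell, none rose, and the median log2 change was -0.76 (8 to 15 calls with any 1 library left out, the fewest without 1M replicate 3). Msmo1, which removes methyl groups from sterol intermediates, had 77.4, 56 and 57.7 CPM in 1M, against 195, 187 and 273 CPM in sham (log2 change -1.78 ± 0.22, edgeR adjusted p = 9.58e-05). Tm7sf2, a sterol reductase, had 10.9, 10.3 and 6.32 CPM in 1M, against 44.1, 31.8 and 37 CPM in sham (log2 change -2.04 ± 0.30, edgeR adjusted p = 0.000385). Fdft1, squalene synthase, averaged 45.8 ± 7.21 CPM in 1M and 139.7 ± 28.5 CPM in sham (log2 change -1.61 ± 0.21, edgeR adjusted p = 0.00017). No 1M library reached the sham libraries in these 3 genes. Dhcr7, which completes cholesterol, averaged 51.7 ± 1.34 CPM in 1M and 127 ± 40.3 CPM in sham (log2 change -1.29 ± 0.22, edgeR adjusted p = 0.00125). Hmgcs1, an early enzyme of the pathway, averaged 237 ± 32.9 CPM in 1M and 424 ± 113 CPM in sham (log2 change -0.84 ± 0.20, edgeR adjusted p = 0.0122). Hmgcs1 was not called without 1M replicate 2 (edgeR adjusted p = 0.0817) or without 1M replicate 3 (edgeR adjusted p = 0.0755).

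The promoter of Msmo1 is printed because sterol genes carry sites of nuclear factor Y, which binds CCAAT, beside those of sterol regulatory proteins. Promoters here are the 250 bases before and 50 after each gene's start in RefSeq, build GRCm38.p6, and motifs were searched on both strands. Capitals mark CCAAT and CACNCCA, a core of the sterol element, or their reverse complements, at chr8:64733529-64733828 on the minus strand, where CCAAT occurs at 3 positions and CACNCCA at 1.
Msmo1: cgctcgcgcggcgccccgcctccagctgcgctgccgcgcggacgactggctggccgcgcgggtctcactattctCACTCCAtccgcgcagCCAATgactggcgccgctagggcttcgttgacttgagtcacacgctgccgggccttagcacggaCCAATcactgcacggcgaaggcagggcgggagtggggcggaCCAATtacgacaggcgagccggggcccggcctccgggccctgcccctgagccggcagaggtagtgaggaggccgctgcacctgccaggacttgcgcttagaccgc
Of the cholesterol list, 19 of 26 genes had a promoter in the table. Of these, 17 (89.5%) held CCAAT, against 37.9% of all 27025 promoters, and 5 (26.3%) held CACNCCA, against 18.3%. Both motifs stood together in 4 (21.1%), against 6.76% of all promoters. A match to letters is a description of the window and not a bound site.

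Fatty acid genes were split. In that list 8 of 24 tested genes fell (6 to 10 with any 1 library left out) and 2 rose, with a median log2 change of -0.36. Elovl2, which elongates polyunsaturated fatty acids, had 2.59, 5.66 and 5.63 CPM in 1M, against 66.8, 57.1 and 56.4 CPM in sham (log2 change -3.70 ± 0.35, edgeR adjusted p = 8.84e-06). Acsl6, an acyl-CoA synthetase of neural tissue, averaged 63.1 ± 5.28 CPM in 1M and 265 ± 54.1 CPM in sham (log2 change -2.07 ± 0.18, edgeR adjusted p = 4.65e-06). The acyl-CoA synthetases Acsl1 and Acsl5 went the other way: Acsl1 averaged 26.5 ± 2.18 CPM in 1M and 14.2 ± 0.476 CPM in sham (log2 change 0.90 ± 0.19, edgeR adjusted p = 0.00579). Acsl5 averaged 64.1 ± 7.44 CPM in 1M and 35 ± 2.93 CPM in sham (log2 change 0.87 ± 0.17, edgeR adjusted p = 0.00246). Fasn, fatty acid synthase, averaged 485 ± 9.24 CPM in 1M and 538 ± 18.9 CPM in sham and was not called (log2 change -0.15 ± 0.15, edgeR adjusted p = 0.599).

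Hedgehog genes, through which neurons signal to astrocytes in the adult, fell in 5 of 12 tested members and rose in none (median log2 change -0.67). The count was 5 whichever library was left out. The called members were the transcription factors Gli1 and Gli2, the receptor Ptch1, its partner Smo and the co-receptor Boc. Gli1, itself a target of the pathway, had 2.99, 1.69 and 3.41 CPM in 1M, against 16.3, 50.5 and 12.3 CPM in sham (log2 change -3.29 ± 0.66, edgeR adjusted p = 0.00342). Gli1 had a log2 change of -2.42 without sham replicate 2. Gli2 had 3.9, 3.23 and 4.53 CPM in 1M, against 17.5, 43.5 and 24.4 CPM in sham (log2 change -2.87 ± 0.43, edgeR adjusted p = 0.000416). Ptch1 averaged 108 ± 12.4 CPM in 1M and 217 ± 24 CPM in sham (log2 change -1.01 ± 0.16, edgeR adjusted p = 0.000749). The groups did not overlap in these genes. The ligand gene Shh averaged 0.787 ± 0.63 CPM in 1M and 0.232 ± 0.325 CPM in sham (log2 change 1.70 ± 1.52, edgeR adjusted p = 0.554). Shh had a log2 change of 3.77 without sham replicate 2 and 2.29 without 1M replicate 2.

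In the Notch list 4 of 16 tested genes fell and 1 rose (median log2 change -0.10). The falling genes were a target, Heyl, the glycosyltransferase Lfng that tunes the receptors, the receptor Notch3, and the target Hes1. Heyl had 1.26, 2.57 and 0.433 CPM in 1M, against 16.8, 23.1 and 12.5 CPM in sham (log2 change -3.61 ± 0.56, edgeR adjusted p = 0.000518). Heyl had a log2 change of -4.33 without 1M replicate 2. Lfng had 19.8, 18.8 and 15 CPM in 1M, against 142, 112 and 85 CPM in sham (log2 change -2.66 ± 0.21, edgeR adjusted p = 1.46e-06). No 1M library reached a sham library in either gene. Notch4, an endothelial receptor, rose, with 15.7 ± 1.87 CPM in 1M and 5.51 ± 1.73 CPM in sham (log2 change 1.51 ± 0.30, edgeR adjusted p = 0.00311). Notch1 averaged 406 ± 35.7 CPM in 1M and 379 ± 9.28 CPM in sham and was not called (log2 change 0.10 ± 0.14, edgeR adjusted p = 0.743).

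In the Wnt list 5 of 29 tested genes rose and 3 fell (median log2 change 0.34, 1 lower without sham replicate 1 or 1M replicates 1, 2 or 3 and 5 lower without sham replicate 3). Dkk2, a secreted Wnt modulator, had 8.15, 3.8 and 13.9 CPM in 1M, against 0.0624, 0 and 0 CPM in sham. Only 2 counts of it were seen in the 3 sham libraries together and 979 in the 1M libraries, a ratio of depth-scaled counts of 314 with a 95% counting interval of 86.7 to 2600 (edgeR adjusted p = 1.16e-05). Nkd1, an inhibitor induced by Wnt, had 68.1, 89.8 and 74.2 CPM in 1M, against 27.1, 16.2 and 34.7 CPM in sham (log2 change 1.58 ± 0.26, edgeR adjusted p = 0.00075). The ligand Wnt7a averaged 17.9 ± 1.26 CPM in 1M and 55.8 ± 0.38 CPM in sham (log2 change -1.64 ± 0.33, edgeR adjusted p = 0.00347). Axin2, a common Wnt target, averaged 61.2 ± 7.79 CPM in 1M and 45.6 ± 8.93 CPM in sham and was not called (log2 change 0.43 ± 0.19, edgeR adjusted p = 0.172). Genes of the TGF-beta and BMP list rose in 7 of 30 tested members and fell in 1 (median log2 change 0.27, 4 higher without 1M replicate 3 and 2 lower without sham replicate 3). Tgfb1 had 55.6, 72.2 and 74.2 CPM in 1M, against 19.5, 6.31 and 4.24 CPM in sham (log2 change 2.73 ± 0.41, edgeR adjusted p = 0.000435). Tgfb1 had a log2 change of 3.66 without sham replicate 1. Tgfbr2, a TGF-beta receptor, averaged 171 ± 35.6 CPM in 1M and 49.2 ± 19.4 CPM in sham (log2 change 1.80 ± 0.25, edgeR adjusted p = 0.000226). Bmpr1b, a BMP receptor, averaged 5.85 ± 2.74 CPM in 1M and 33.4 ± 4.62 CPM in sham (log2 change -2.51 ± 0.35, edgeR adjusted p = 0.000267).

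Axon guidance genes moved both ways, with 9 of 40 tested genes higher and 5 lower (median log2 change 0.14, 3 lower without 1M replicates 2 or 3). Nrp1, a semaphorin receptor that endothelium and macrophages also make, had 68.4, 77.7 and 92.4 CPM in 1M, against 16.9, 13 and 5.75 CPM in sham (log2 change 2.73 ± 0.29, edgeR adjusted p = 2.37e-05). Sema4a had 7.43, 6.85 and 5.63 CPM in 1M, against 34.8, 86.8 and 64.9 CPM in sham (log2 change -3.23 ± 0.31, edgeR adjusted p = 1.06e-05), without overlap. Epha4, an ephrin receptor of astrocytes and neurons, averaged 16.9 ± 3.54 CPM in 1M and 43.1 ± 6.16 CPM in sham (log2 change -1.35 ± 0.21, edgeR adjusted p = 0.000657). Plxnb3, a plexin of oligodendrocyte lineage cells, averaged 235 ± 13.9 CPM in 1M and 122 ± 23.4 CPM in sham (log2 change 0.95 ± 0.17, edgeR adjusted p = 0.00135).

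The chaperone list fell in 5 of 17 tested genes and rose in none (5 to 7 calls with any 1 library left out, median log2 change -0.37). Hspa1b, an inducible Hsp70, had 71.2, 58.3 and 46.8 CPM in 1M, against 293, 598 and 302 CPM in sham (log2 change -2.76 ± 0.30, edgeR adjusted p = 3.01e-05). Its near-identical neighbour Hspa1a had 54, 42.5 and 45.4 CPM in 1M, against 113, 271 and 195 CPM in sham (log2 change -2.03 ± 0.28, edgeR adjusted p = 0.000194), and reads may be split between the pair, so each value is uncertain. Dnajb1, an Hsp40 partner, averaged 152 ± 14.4 CPM in 1M and 372 ± 33.5 CPM in sham (log2 change -1.29 ± 0.15, edgeR adjusted p = 4.8e-05). The constitutive Hspa8 averaged 1201 ± 44.2 CPM in 1M and 1341 ± 499.6 CPM in sham and was not called (log2 change -0.16 ± 0.21, edgeR adjusted p = 0.714). Hspa8 had a log2 change of 0.19 without sham replicate 1. Immediate early genes, which digestion and sorting can induce, showed 3 of 25 tested members higher and 1 lower (median log2 change -0.20, 6 higher without sham replicate 3, 1 higher without 1M replicates 1, 2 or 3, 0 lower without sham replicates 1 or 3 or 1M replicates 2 or 3 and 13 lower without sham replicate 2). Fos averaged 4408 ± 397 CPM in 1M and 5610.1 ± 2278 CPM in sham (log2 change -0.35 ± 0.25, edgeR adjusted p = 0.429). Fos was called without sham replicate 2 (log2 change -0.66, edgeR adjusted p = 0.00488). Egr1 averaged 3399 ± 306 CPM in 1M and 3717 ± 1127 CPM in sham (log2 change -0.13 ± 0.21, edgeR adjusted p = 0.773). Egr1 had a log2 change of 0.10 without sham replicate 3. Neither was called with all libraries in. The count of falls in that list thus changed with the libraries kept, and was largest, at 13, without sham replicate 2.

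In the glucocorticoid list 6 of 20 tested genes fell and 4 rose (median log2 change -0.15, 3 lower without 1M replicate 3). Tsc22d3, a glucocorticoid-induced leucine zipper protein, averaged 54.1 ± 12 CPM in 1M and 127 ± 66.3 CPM in sham (log2 change -1.23 ± 0.28, edgeR adjusted p = 0.00925). Tsc22d3 was not called without 1M replicate 3 (edgeR adjusted p = 0.066). Nr3c2, the mineralocorticoid receptor, averaged 19.4 ± 5 CPM in 1M and 46.2 ± 10.6 CPM in sham (log2 change -1.25 ± 0.24, edgeR adjusted p = 0.00283). Fkbp5, another induced gene, moved the other way, with 44.2 ± 1.57 CPM in 1M and 16.6 ± 11.2 CPM in sham (log2 change 1.4 ± 0.35, edgeR adjusted p = 0.015). Fkbp5 was not called without 1M replicate 2 (edgeR adjusted p = 0.054) or without 1M replicate 3 (edgeR adjusted p = 0.0502) and had a log2 change of 2.03 without sham replicate 1. Of clock genes, 4 of 19 fell and none rose (median log2 change -0.23, 2 lower without 1M replicate 2). Npas2, a partner of the clock activator, had 1.18, 2.17 and 2.51 CPM in 1M, against 7.92, 22.1 and 14 CPM in sham (log2 change -2.91 ± 0.52, edgeR adjusted p = 0.00168). Per3 averaged 75.6 ± 5.78 CPM in 1M and 143 ± 55.6 CPM in sham (log2 change -0.92 ± 0.23, edgeR adjusted p = 0.015). Per3 was not called without sham replicate 2 or 1M replicates 2 or 3 (edgeR adjusted p = 0.0543 to 0.0867). In the glycolysis and hypoxia list 5 of 27 tested genes fell and 2 rose (median log2 change -0.31, 1 higher without sham replicate 2 or 1M replicate 3, 9 lower without sham replicate 2 and 3 lower without 1M replicate 2). Aldoc, the aldolase of astrocytes, averaged 202 ± 9.95 CPM in 1M and 1037 ± 209 CPM in sham (log2 change -2.36 ± 0.17, edgeR adjusted p = 7.19e-07). Slc16a3, a lactate exporter, averaged 24.1 ± 6.68 CPM in 1M and 5.97 ± 3.29 CPM in sham (log2 change 2.02 ± 0.39, edgeR adjusted p = 0.00285).

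Genes of phagocytes that take up lipid and debris were higher in 1M. In the phagocyte activation list 22 of 25 tested genes rose and none fell, with a median log2 change of 2.86 (20 to 23 calls with any 1 library left out). Cst7, a cystatin of activated microglia, had 75.3, 141 and 142 CPM in 1M, against 2.34, 0 and 0 CPM in sham (log2 change 7.08 ± 0.80, edgeR adjusted p = 3.47e-05). Cst7 had a log2 change of 6.43 without sham replicate 2 and had no sham count left without sham replicate 1. Igf1, an insulin-like growth factor, had 78.4, 105 and 146 CPM in 1M, against 0.436, 0 and 2.96 CPM in sham (log2 change 6.86 ± 0.74, edgeR adjusted p = 2.27e-05). Igf1 had a log2 change of 6.19 without sham replicate 2 and 8.91 without sham replicate 3. Lpl, lipoprotein lipase, had 270.0, 342 and 376 CPM in 1M, against 23.9, 7.01 and 11.5 CPM in sham (log2 change 4.54 ± 0.36, edgeR adjusted p = 1.59e-06). Lpl had a log2 change of 5.17 without sham replicate 1. The lowest 1M library stood above the highest sham library in each, which the naming rule required of Cst7 and Igf1. Msr1, a scavenger receptor, averaged 30.9 ± 3.05 CPM in 1M and 1.54 ± 2.08 CPM in sham (log2 change 4.50 ± 0.66, edgeR adjusted p = 0.000365). Msr1 had a log2 change of 6.50 without sham replicate 3. Apoe, the main lipid carrier of the nervous system, was already abundant in sham and averaged 14037 ± 2748 CPM in 1M and 2070.5 ± 405 CPM in sham (log2 change 2.76 ± 0.23, edgeR adjusted p = 3.31e-06). Cd36, a fatty acid receptor of macrophages, averaged 3.28 ± 1.54 CPM in 1M and 2.79 ± 2.5 CPM in sham and was not called (log2 change 0.27 ± 0.54, edgeR adjusted p = 0.824). Cd36 had a log2 change of -0.20 without sham replicate 2 and 1.22 without sham replicate 3.

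Other genes named by the size of their rise are known from immune cells. Cd22, a sialic acid receptor of B cells and microglia, had 24.7, 29 and 36.9 CPM in 1M, against 0.592, 0.369 and 0.0605 CPM in sham (log2 change 6.31 ± 0.45, edgeR adjusted p = 5.64e-07). Cd22 had a log2 change of 6.89 without sham replicate 1. Cd300lf, an inhibitory receptor of myeloid cells, averaged 10.9 ± 3.01 CPM in 1M and 0.052 ± 0.09 CPM in sham (log2 change 7.38 ± 0.70, edgeR adjusted p = 8.79e-06). Cd300lf had a log2 change of 6.73 without sham replicate 2 and had no sham count left without sham replicate 1. Lilr4b, of the same kind, averaged 27 ± 4.97 CPM in 1M and 0.355 ± 0.51 CPM in sham (log2 change 6.09 ± 0.62, edgeR adjusted p = 1.39e-05). Lilr4b had a log2 change of 8.31 without sham replicate 2. Ms4a7, a membrane protein of macrophages, averaged 21.7 ± 1.87 CPM in 1M and 0.145 ± 0.252 CPM in sham (log2 change 6.95 ± 0.60, edgeR adjusted p = 4.1e-06). Ms4a7 had a log2 change of 6.28 without sham replicate 2 and had no sham count left without sham replicate 1. No count of Mcoln3, a calcium channel of endosomes, was found in any sham library, and its level was at least 286-fold higher in 1M by a floor of 3 counts over the sham group. It had 3.39, 17.9 and 8.95 CPM in the 1M libraries (edgeR adjusted p = 4.14e-05).

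Macrophage and microglia markers moved with these genes, with 19 of 23 tested markers higher, none lower, and a median log2 change of 2.33. Tyrobp, the adaptor of myeloid receptors, had 182, 275 and 292 CPM in 1M, against 43.1, 14.2 and 5.08 CPM in sham (log2 change 3.57 ± 0.52, edgeR adjusted p = 0.000318). Tyrobp had a log2 change of 4.66 without sham replicate 1. Aif1 averaged 24.8 ± 7.14 CPM in 1M and 4.92 ± 4.38 CPM in sham (log2 change 2.31 ± 0.44, edgeR adjusted p = 0.00241). Aif1 had a log2 change of 3.37 without sham replicate 1. Markers of resting microglia were mixed: 6 of 15 rose and 1 fell (median log2 change 1.03, 10 higher without sham replicate 1 and 0 lower without sham replicate 1 or 1M replicates 1, 2 or 3). Fcrls, an Fc receptor-like protein of microglia, had 228, 318 and 404 CPM in 1M, against 67.3, 18.5 and 15.7 CPM in sham (log2 change 3.22 ± 0.44, edgeR adjusted p = 0.000194). Fcrls had a log2 change of 4.21 without sham replicate 1. P2ry12, the purinergic receptor that defines resting microglia, averaged 40.2 ± 8.29 CPM in 1M and 54.5 ± 42.8 CPM in sham (log2 change -0.44 ± 0.38, edgeR adjusted p = 0.528). P2ry12 had a log2 change of 0.43 without sham replicate 1. Tmem119 averaged 40.4 ± 3.74 CPM in 1M and 57 ± 58.2 CPM in sham (log2 change -0.50 ± 0.47, edgeR adjusted p = 0.578). Tmem119 was called without sham replicate 1 (log2 change 0.78, edgeR adjusted p = 0.0316). Neither was called with all libraries in. Markers of blood monocytes were low: Ccr2 averaged 2.95 ± 2.36 CPM in 1M and 1.79 ± 0.881 CPM in sham and was not called (log2 change 0.72 ± 0.71, edgeR adjusted p = 0.6). Ccr2 had a log2 change of -0.16 without 1M replicate 1. Of 10 tested markers of lymphocytes and granulocytes none rose and 3 fell, the granulocyte genes S100a8, Elane and Mpo (median log2 change -1.52, 1 lower without sham replicates 2 or 3 and 0 lower without 1M replicates 1, 2 or 3), with sums of 1.59 to 6.57 CPM in 1M, against 4.71 to 51.6 CPM in sham. S100a8 had 0.267, 0.279 and 0 CPM in 1M, against 1.53, 23.4 and 0 CPM in sham (log2 change -5.46 ± 1.65, edgeR adjusted p = 0.0409). S100a8 was not called without sham replicate 2 or 1M replicates 1, 2 or 3 (edgeR adjusted p = 0.111 to 0.438). Elane and Mpo had no count in 1M, and most of their sham counts came from replicate 3, with 0, 0.805 and 14 CPM of Elane and 0.281, 0.201 and 10.2 CPM of Mpo in sham. Elane was not called without 1M replicates 1, 2 or 3 (edgeR adjusted p = 0.0965 to 0.113) and fell below the count filter without sham replicates 2 or 3. Mpo was not called without 1M replicates 1, 2 or 3 (edgeR adjusted p = 0.0964 to 0.111) and fell below the count filter without sham replicate 3. Cd8a of T cells had 0.107, 1.21 and 0 CPM in 1M and no count in sham and was not called (edgeR adjusted p = 0.208). Cd79a of B cells averaged 2.01 ± 0.976 CPM in 1M and 0.892 ± 0.538 CPM in sham and was not called (log2 change 1.17 ± 1.13, edgeR adjusted p = 0.591). Cd79a had a log2 change of 1.78 without sham replicate 3. The part of microglia and macrophages among the sorted cells in the rises of phagocyte, lysosome, lipid, complement, cytokine, chemokine, MHC, interferon and iron genes was not tested.

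**Figure D4:**
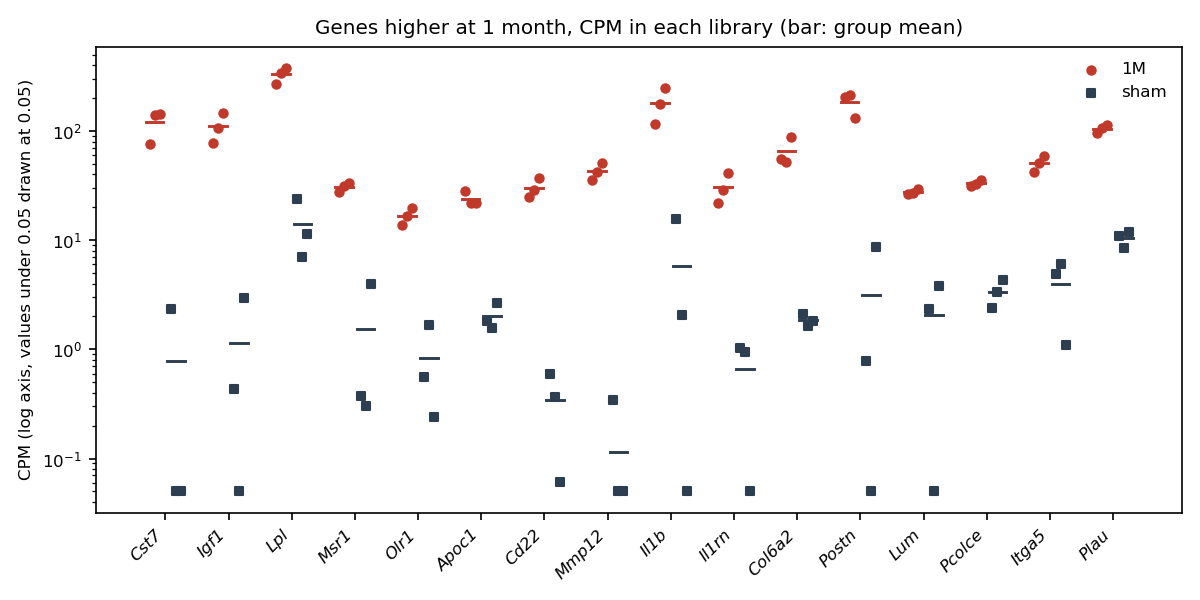
CPM of 16 genes higher at 1 month in each 1M library (red circles) and each sham library (dark squares), on a log axis with bars at group means. Values under 0.05 CPM are drawn at 0.05. In each gene shown the 1M libraries lie above the sham libraries, which the naming rule required of Cst7, Igf1, Cd22, Mmp12 and Postn. The others were named for a large change in their list or chosen after their values were seen. Their lack of overlap is thus no separate result. The sham libraries spread widely within several genes, as in Il1b and Postn.

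Lysosome genes rose in 23 of 30 tested members and fell in none, with a median log2 change of 1.51 (18 to 23 calls with any 1 library left out). No count of Atp6v0d2, a subunit of the proton pump of lysosomes and of cells such as osteoclasts, was found in sham, and its level was at least 411-fold higher in 1M by the same floor. It had 14.4, 16.1 and 16.6 CPM in 1M (edgeR adjusted p = 5.61e-08). The cathepsin Ctsd, an abundant lysosomal protease, had 1912, 2703 and 3167 CPM in 1M, against 478, 186 and 183 CPM in sham (log2 change 3.20 ± 0.36, edgeR adjusted p = 3.47e-05). Ctsd had a log2 change of 3.81 without sham replicate 1. Grn, progranulin, averaged 660.2 ± 134 CPM in 1M and 127 ± 63.1 CPM in sham (log2 change 2.38 ± 0.30, edgeR adjusted p = 9.39e-05). Gusb, beta-glucuronidase, averaged 165 ± 29.4 CPM in 1M and 36.5 ± 11.9 CPM in sham (log2 change 2.17 ± 0.23, edgeR adjusted p = 2.06e-05). Tfeb, a transcription factor of lysosome genes, averaged 29.7 ± 0.393 CPM in 1M and 34.1 ± 11.5 CPM in sham and was not called (log2 change -0.20 ± 0.22, edgeR adjusted p = 0.665). Tfeb had a log2 change of 0.11 without sham replicate 1.

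Lipid carriers and exporters rose in 14 of 29 tested genes and fell in 2 (12 to 15 rises with any 1 library left out, median log2 change 0.42, 1 lower without 1M replicate 3). Apoc1, an apolipoprotein, had 28.3, 21.7 and 21.8 CPM in 1M, against 1.81, 1.58 and 2.66 CPM in sham (log2 change 3.59 ± 0.35, edgeR adjusted p = 1.16e-05). Apod, an apolipoprotein of glia and of nerve injury, had 282, 262 and 251 CPM in 1M, against 33.8, 23.8 and 37.8 CPM in sham (log2 change 3.06 ± 0.22, edgeR adjusted p = 5.64e-07). Neither gene's groups overlapped. Abca1, which exports cholesterol, averaged 538 ± 92.2 CPM in 1M and 239.9 ± 54.3 CPM in sham (log2 change 1.16 ± 0.20, edgeR adjusted p = 0.00106). The falls were Clu, clusterin, with 703 ± 100.5 CPM in 1M and 1564 ± 646 CPM in sham (log2 change -1.15 ± 0.26, edgeR adjusted p = 0.00867), and Pltp, a phospholipid transfer protein, with 155 ± 16.3 CPM in 1M and 429 ± 286 CPM in sham (log2 change -1.47 ± 0.32, edgeR adjusted p = 0.00594). Clu was not called without 1M replicate 3 (edgeR adjusted p = 0.0646). Pltp had a log2 change of -0.78 without sham replicate 1.

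Complement genes rose in 10 of 19 tested members and fell in none (9 to 13 calls with any 1 library left out, median log2 change 2.21). Among components, C3 averaged 108 ± 18.8 CPM in 1M and 18.5 ± 12.3 CPM in sham (log2 change 2.56 ± 0.41, edgeR adjusted p = 0.000706). C4b averaged 748 ± 21.9 CPM in 1M and 156 ± 126 CPM in sham (log2 change 2.26 ± 0.46, edgeR adjusted p = 0.00376). C4b had a log2 change of 3.04 without sham replicate 3. Among receptors, Itgb2, the chain shared by the leukocyte integrins, had 137, 208 and 242 CPM in 1M, against 42.1, 13.5 and 8.11 CPM in sham (log2 change 3.19 ± 0.44, edgeR adjusted p = 0.000239). Itgb2 had a log2 change of 4.16 without sham replicate 1. C3ar1 averaged 87.3 ± 21.7 CPM in 1M and 12.4 ± 6.52 CPM in sham (log2 change 2.82 ± 0.34, edgeR adjusted p = 6.45e-05).

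Cytokine and NF-kB genes rose in 20 of 28 tested members and fell in 2, with a median log2 change of 1.6 (15 to 21 rises with any 1 library left out, 1 lower without 1M replicate 2). Il1b, interleukin 1 beta, had 115, 176 and 245 CPM in 1M, against 15.5, 2.05 and 0 CPM in sham (log2 change 4.88 ± 0.84, edgeR adjusted p = 0.00115). Il1b had a log2 change of 7.22 without sham replicate 1. Il1rn, the antagonist of its receptor, had 21.9, 28.7 and 41.4 CPM in 1M, against 1.03, 0.939 and 0 CPM in sham (log2 change 5.41 ± 0.55, edgeR adjusted p = 1.39e-05). Tnfaip3, an NF-kB-induced inhibitor, had 231, 309 and 327 CPM in 1M, against 51.7, 23.6 and 14 CPM in sham (log2 change 3.27 ± 0.35, edgeR adjusted p = 2.27e-05). Tnfaip3 had a log2 change of 3.93 without sham replicate 1. No 1M library reached down to a sham library in the 3 genes. The falls were Il18, with 19 ± 4.26 CPM in 1M and 41.7 ± 7.24 CPM in sham (log2 change -1.13 ± 0.24, edgeR adjusted p = 0.00591), and Il33, a nuclear cytokine of glia, with 13.5 ± 2.42 CPM in 1M and 28.3 ± 3.71 CPM in sham (log2 change -1.07 ± 0.28, edgeR adjusted p = 0.0193). Il33 was not called without 1M replicate 2 (edgeR adjusted p = 0.117) or without 1M replicate 3 (edgeR adjusted p = 0.0612). Il6 averaged 5.52 ± 1.97 CPM in 1M and 8.06 ± 9.54 CPM in sham and was not called (log2 change -0.54 ± 0.82, edgeR adjusted p = 0.759). Il6 had a log2 change of 1.03 without sham replicate 3.

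Of the chemokine list 10 of 30 tested genes rose and 2 fell (median log2 change 1.25, 1 lower without 1M replicates 1, 2 or 3). Cxcl2, a neutrophil attractant, had 69, 78.7 and 81.9 CPM in 1M, against 5.67, 1.71 and 13.9 CPM in sham (log2 change 3.47 ± 0.47, edgeR adjusted p = 0.000188). Cxcl2 had a log2 change of 4.37 without sham replicate 3. Ccl3 averaged 129 ± 9.57 CPM in 1M and 18.2 ± 14.7 CPM in sham (log2 change 2.81 ± 0.40, edgeR adjusted p = 0.000302). Ccl3 had a log2 change of 3.73 without sham replicate 1. No count of Ccl11, an eosinophil attractant, was found in sham, and its level was at least 39.3-fold higher in 1M by the same floor, with 1.26, 0.817 and 2.77 CPM in 1M (edgeR adjusted p = 0.00403). Cx3cl1, fractalkine, fell, with 53.9 ± 2.84 CPM in 1M and 103 ± 16.2 CPM in sham (log2 change -0.93 ± 0.18, edgeR adjusted p = 0.00228). In the gp130 list 5 of 18 tested genes rose and 1 fell (median log2 change 0.34, 2 lower without sham replicate 1). Osm, oncostatin M, had 25.1, 35.1 and 43.4 CPM in 1M, against 4.18, 1.34 and 0 CPM in sham (log2 change 4.14 ± 0.67, edgeR adjusted p = 0.00073). Osm had a log2 change of 5.46 without sham replicate 1. Its receptor Osmr averaged 16.1 ± 4.79 CPM in 1M and 4.78 ± 5 CPM in sham (log2 change 1.79 ± 0.52, edgeR adjusted p = 0.0343). Osmr was not called without sham replicates 1 or 2 or 1M replicates 1, 2 or 3 (edgeR adjusted p = 0.0541 to 0.133) and had a log2 change of 3.07 without sham replicate 3. Stat3 averaged 288 ± 13.4 CPM in 1M and 135 ± 9.93 CPM in sham (log2 change 1.09 ± 0.14, edgeR adjusted p = 0.000164). The shared receptor Il6st averaged 389 ± 6.97 CPM in 1M and 399 ± 90.1 CPM in sham (log2 change -0.04 ± 0.17, edgeR adjusted p = 0.932). Il6st had a log2 change of 0.13 without sham replicate 1.

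MHC class I genes rose in 9 of 20 tested members and fell in none (7 to 11 calls with any 1 library left out, median log2 change 1.04). B2m, the shared light chain, had 645, 991 and 949 CPM in 1M, against 216, 105 and 318 CPM in sham (log2 change 2.02 ± 0.31, edgeR adjusted p = 0.000439). H2-Q7, a non-classical heavy chain with close relatives among which reads may be split, averaged 23.9 ± 7.38 CPM in 1M and 5.4 ± 2.32 CPM in sham (log2 change 2.16 ± 0.32, edgeR adjusted p = 0.000421). Of the interferon-stimulated list 6 of 32 tested genes rose and 1 fell (median log2 change 0.57, 10 higher without sham replicate 1, 2 higher without 1M replicates 2 or 3 and 0 lower without sham replicate 1 or 1M replicates 1, 2 or 3). That is 21.9% called, against 12.1% of all genes tested. Cxcl10 had 21.7, 36.7 and 41.9 CPM in 1M, against 3.62, 0.973 and 6.6 CPM in sham (log2 change 3.20 ± 0.48, edgeR adjusted p = 0.000385). Cxcl10 had a log2 change of 3.85 without sham replicate 3. Ifit1 averaged 16 ± 2.5 CPM in 1M and 7.74 ± 4 CPM in sham (log2 change 1.05 ± 0.39, edgeR adjusted p = 0.0974). Isg15 averaged 5.94 ± 1.71 CPM in 1M and 4.58 ± 3.34 CPM in sham (log2 change 0.39 ± 0.56, edgeR adjusted p = 0.741). Isg15 had a log2 change of -0.05 without sham replicate 2 and 1.06 without sham replicate 3. Neither was called with all libraries in. In the iron and antioxidant list 7 of 28 tested genes rose and none fell (median log2 change 0.14, 3 lower without sham replicate 2). Slc11a1, a metal transporter of phagosomes, averaged 98.2 ± 27.8 CPM in 1M and 11 ± 6.87 CPM in sham (log2 change 3.15 ± 0.34, edgeR adjusted p = 2.27e-05). Slc11a1 had a log2 change of 3.81 without sham replicate 1. Hmox1, which breaks down heme, averaged 54.1 ± 8.11 CPM in 1M and 19.9 ± 7.43 CPM in sham (log2 change 1.44 ± 0.24, edgeR adjusted p = 0.000787).

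Collagen chains rose in 15 of 28 tested members and fell in 2, with a median log2 change of 1.47 (13 to 18 rises with any 1 library left out, 1 lower without sham replicate 1 or 1M replicates 2 or 3). Col6a2, a chain of the beaded collagen VI, had 55.2, 52.4 and 88.7 CPM in 1M, against 2.12, 1.64 and 1.82 CPM in sham (log2 change 5.13 ± 0.26, edgeR adjusted p = 1.88e-08). Col1a1, the main fibrillar chain, had 505, 482 and 470.3 CPM in 1M, against 12.8, 36.9 and 117 CPM in sham (log2 change 3.13 ± 0.51, edgeR adjusted p = 0.000787). Col1a1 had a log2 change of 4.29 without sham replicate 3. Col4a2 of basement membranes averaged 150.4 ± 12.6 CPM in 1M and 51.8 ± 6.83 CPM in sham (log2 change 1.54 ± 0.16, edgeR adjusted p = 2.03e-05). In these 3 genes the groups did not overlap, and in Col1a1 sham replicate 3 was far above the other sham libraries. Col8a2 fell, with 36.9 ± 3.47 CPM in 1M and 138 ± 91.2 CPM in sham (log2 change -1.90 ± 0.40, edgeR adjusted p = 0.00484). Col8a2 had a log2 change of -1.20 without sham replicate 1.

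In the fibrotic matrix list 16 of 28 tested genes rose and 2 fell (13 to 18 rises with any 1 library left out, median log2 change 1.12, 1 lower without sham replicate 1 or 1M replicates 1, 2 or 3 and 4 lower without sham replicate 2). Postn, periostin of scar fibroblasts, had 206, 212 and 133 CPM in 1M, against 0.779, 0 and 8.71 CPM in sham (log2 change 6.01 ± 0.90, edgeR adjusted p = 0.000404). Postn had a log2 change of 5.38 without sham replicate 2 and 8.83 without sham replicate 3. Pcolce, which helps to process procollagen, had 31.6, 32.3 and 35.6 CPM in 1M, against 2.4, 3.32 and 4.3 CPM in sham (log2 change 3.33 ± 0.31, edgeR adjusted p = 8.38e-06). Dcn, decorin, averaged 79.8 ± 13.4 CPM in 1M and 11 ± 8.37 CPM in sham (log2 change 2.88 ± 0.38, edgeR adjusted p = 0.000156). Dcn had a log2 change of 3.68 without sham replicate 3. Prelp, a proteoglycan of basement membranes, fell, with 135 ± 0.933 CPM in 1M and 337 ± 163 CPM in sham (log2 change -1.32 ± 0.30, edgeR adjusted p = 0.00766). Laminins, nidogens and integrins rose in 12 of 30 tested genes and fell in 2 (median log2 change 0.92, 1 lower without 1M replicates 2 or 3). Itga5, the fibronectin receptor chain, had 41.7, 51.1 and 59.2 CPM in 1M, against 4.89, 6.04 and 1.09 CPM in sham (log2 change 3.62 ± 0.41, edgeR adjusted p = 3.39e-05). Nid1, a linker of basement membranes, averaged 190.0 ± 23.5 CPM in 1M and 25.4 ± 32.2 CPM in sham (log2 change 2.93 ± 0.62, edgeR adjusted p = 0.00538). Nid1 had a log2 change of 4.81 without sham replicate 3. The laminin chain Lama5 fell, with 77.6 ± 16.9 CPM in 1M and 145 ± 29.4 CPM in sham (log2 change -0.90 ± 0.20, edgeR adjusted p = 0.00673). Lama5 was not called without 1M replicate 2 (edgeR adjusted p = 0.056) or without 1M replicate 3 (edgeR adjusted p = 0.0519).

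Matrix proteases and their inhibitors rose in 17 of 31 tested genes and fell in 1, with a median log2 change of 0.96 (16 to 18 rises with any 1 library left out). Mmp12, the macrophage elastase, had 35.7, 42.4 and 50.6 CPM in 1M, against 0.343, 0 and 0 CPM in sham (log2 change 8.25 ± 0.67, edgeR adjusted p = 1.9e-06). Mmp12 had a log2 change of 7.58 without sham replicate 2 and had no sham count left without sham replicate 1. No count of Mmp3, stromelysin, was found in sham, and its level was at least 233-fold higher in 1M by the same floor, with 11.3, 3.86 and 13.6 CPM in 1M (edgeR adjusted p = 8.73e-05). Plau, urokinase, had 95.5, 108 and 112 CPM in 1M, against 11, 8.39 and 12 CPM in sham (log2 change 3.33 ± 0.22, edgeR adjusted p = 2.44e-07). The 1M and sham libraries did not overlap in these genes, which the naming rule required of Mmp12. Timp4, an inhibitor of metalloproteases, fell, with 100.0 ± 4.08 CPM in 1M and 197 ± 47.8 CPM in sham (log2 change -0.98 ± 0.19, edgeR adjusted p = 0.00271).

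Markers of vessel, fibroblast and Schwann cells rose in part. Endothelial markers rose in 7 of 15 tested genes, with sums of 424 to 446 CPM in 1M, against 95.7 to 304 CPM in sham (median log2 change 1.11, 11 higher without sham replicate 1 and 4 higher without 1M replicate 3). Flt1, a receptor for vascular endothelial growth factor, averaged 109 ± 19.2 CPM in 1M and 28.4 ± 17.6 CPM in sham (log2 change 1.94 ± 0.32, edgeR adjusted p = 0.000898). Flt1 had a log2 change of 2.54 without sham replicate 1. Pericyte, smooth muscle and fibroblast markers rose in 6 of 16 tested genes (median log2 change 0.69) and summed to 5468 to 5742 CPM in 1M and 3025 to 4115 CPM in sham. Most of each sum came from Pdgfra and Cspg4, which are also precursor markers, and without them the sums were 1774 to 1933 CPM in 1M and 162.1 to 625.4 CPM in sham. Of the 6, Col1a1, Col1a2, Col3a1, Dcn and Lum are matrix genes themselves. Pdgfrb averaged 16.7 ± 3.99 CPM in 1M and 16 ± 6.81 CPM in sham and was not called (log2 change 0.06 ± 0.35, edgeR adjusted p = 0.95). Pdgfrb had a log2 change of -0.20 without sham replicate 1 and -0.14 without 1M replicate 3. Schwann cell markers rose in 4 of 10 tested genes (median log2 change 1.47, 2 higher without sham replicate 1 or 1M replicates 1 or 3, 9 higher without sham replicate 3 and 1 higher without 1M replicate 2) and summed to 1195 to 1553 CPM in 1M and 207 to 1372 CPM in sham. Gldn, gliomedin, had 19.95, 24.6 and 19.8 CPM in 1M, against 0.655, 0 and 2.54 CPM in sham (log2 change 4.49 ± 0.73, edgeR adjusted p = 0.000776). Gldn had a log2 change of 3.83 without sham replicate 2 and 5.99 without sham replicate 3. In Gldn the groups did not overlap. The part of these cells in the matrix rises was not tested.

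Proteoglycans of the chondroitin sulfate class, which limit axon growth in the scar, were for the most part not called. In that list 3 of 18 tested genes rose and 1 fell (median log2 change 0.35, 6 higher without sham replicate 2, 2 lower without sham replicates 1 or 2 and 0 lower without 1M replicates 2 or 3). Bgn, biglycan, had 116, 110.2 and 132 CPM in 1M, against 35.8, 6.81 and 17.2 CPM in sham (log2 change 2.58 ± 0.38, edgeR adjusted p = 0.000396). Bgn had a log2 change of 3.34 without sham replicate 1. Cd44, a hyaluronan receptor, averaged 61.7 ± 9.28 CPM in 1M and 13.7 ± 11.2 CPM in sham (log2 change 2.19 ± 0.39, edgeR adjusted p = 0.00162). Cd44 had a log2 change of 3.06 without sham replicate 3. Bcan, brevican, fell, with 721 ± 13.3 CPM in 1M and 1332 ± 421 CPM in sham (log2 change -0.89 ± 0.21, edgeR adjusted p = 0.0114). Bcan was not called without 1M replicate 2 (edgeR adjusted p = 0.0626) or without 1M replicate 3 (edgeR adjusted p = 0.0591). Ncan, neurocan, averaged 321 ± 21.6 CPM in 1M and 329.9 ± 73.4 CPM in sham (log2 change -0.04 ± 0.17, edgeR adjusted p = 0.926). Ncan had a log2 change of 0.15 without sham replicate 2. Acan, aggrecan, averaged 31 ± 2.53 CPM in 1M and 47.4 ± 7.74 CPM in sham (log2 change -0.61 ± 0.20, edgeR adjusted p = 0.0623). Acan was called without sham replicate 1 (log2 change -0.68, edgeR adjusted p = 0.0436) and without sham replicate 2 (log2 change -0.68, edgeR adjusted p = 0.0498). Neither was called with all libraries in. Of the enzymes that make chondroitin sulfate, 1 of 20 tested, Dse, rose and 1, Csgalnact1, fell (median log2 change 0.06, 2 higher without sham replicate 3 and 0 lower without 1M replicates 1 or 3).

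Lists drawn up for reactive astrocytes rose in part. Of the pan-reactive list 5 of 13 tested genes rose and none fell (4 to 6 higher with any 1 library left out, 1 lower without sham replicate 3), of the A1-type list 8 of 11 rose and 1 fell, and of the A2-type list 5 of 13 rose and 1 fell (8 higher without sham replicate 3, 2 lower without sham replicate 2 and 0 lower without 1M replicates 2 or 3). Their median log2 changes were 1.70, 1.43 and 1.09 in that order. Several of the risers are also made by microglia and macrophages, among them Srgn, a proteoglycan of secretory granules, Cd14, a coreceptor for lipopolysaccharide, and Ptgs2, a prostaglandin synthase. Srgn had 53.5, 76 and 97.1 CPM in 1M, against 16.2, 3.56 and 8.47 CPM in sham (log2 change 3.00 ± 0.38, edgeR adjusted p = 0.000122). Srgn had a log2 change of 3.69 without sham replicate 1. Cd14 had 251, 369 and 432 CPM in 1M, against 52.1, 7.38 and 11 CPM in sham (log2 change 3.89 ± 0.54, edgeR adjusted p = 0.000227). Cd14 had a log2 change of 5.26 without sham replicate 1. Ptgs2 had 44.1, 68.4 and 93.4 CPM in 1M, against 10.5, 5 and 1.51 CPM in sham (log2 change 3.56 ± 0.47, edgeR adjusted p = 0.000143). Ptgs2 had a log2 change of 4.33 without sham replicate 1. The groups did not overlap in these 3 genes, and sham replicate 1 was the highest sham library in Cd14. Amigo2, an adhesion protein of the A1-type list, fell, with 3.13 ± 1.47 CPM in 1M and 15.1 ± 4.02 CPM in sham (log2 change -2.27 ± 0.48, edgeR adjusted p = 0.0049). Tm4sf1 of the A2-type list fell too, with 103 ± 15.1 CPM in 1M and 296 ± 179.9 CPM in sham (log2 change -1.52 ± 0.36, edgeR adjusted p = 0.01). Tm4sf1 was not called without 1M replicate 2 (edgeR adjusted p = 0.0687) or without 1M replicate 3 (edgeR adjusted p = 0.0524) and had a log2 change of -0.90 without sham replicate 1. Steap4, a metalloreductase of the pan-reactive list, averaged 3.17 ± 1.01 CPM in 1M and 0.899 ± 0.81 CPM in sham and was not called (log2 change 1.83 ± 1.01, edgeR adjusted p = 0.286). Steap4 had a log2 change of 1.23 without sham replicate 2 and 2.48 without sham replicate 3.

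The proteins by which astrocytes act on synapses moved both ways, with 3 of 15 tested genes lower and 2 higher (median log2 change -0.01, 4 higher without sham replicate 3 and 1 higher without 1M replicates 1, 2 or 3). Gpc5, a glypican, averaged 21.9 ± 4.83 CPM in 1M and 74.9 ± 9.04 CPM in sham (log2 change -1.77 ± 0.27, edgeR adjusted p = 0.000477). Thbs2, a thrombospondin, averaged 121 ± 12.4 CPM in 1M and 42.9 ± 8.54 CPM in sham (log2 change 1.5 ± 0.18, edgeR adjusted p = 7.47e-05). Megf10, an engulfment receptor, averaged 117 ± 11.1 CPM in 1M and 154 ± 24.8 CPM in sham and was not called (log2 change -0.39 ± 0.16, edgeR adjusted p = 0.13).

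Cell division genes rose together in 1M. Of the mitosis list 28 of 29 tested genes rose and none fell, with a median log2 change of 1.57 (22 to 28 calls with any 1 library left out). Top2a, the topoisomerase that untangles chromosomes, had 182, 187 and 194 CPM in 1M, against 67.5, 33.4 and 26 CPM in sham (log2 change 2.15 ± 0.29, edgeR adjusted p = 0.000169). Mki67, the Ki-67 protein, had 212, 194 and 203 CPM in 1M, against 58.9, 48.2 and 32.6 CPM in sham (log2 change 2.12 ± 0.24, edgeR adjusted p = 4.02e-05). Cdk1, the kinase that starts mitosis, had 35.8, 28.4 and 28.3 CPM in 1M, against 10.6, 6.94 and 10.3 CPM in sham (log2 change 1.73 ± 0.23, edgeR adjusted p = 0.000154). The groups did not overlap in these genes. Plk1, a mitotic kinase, averaged 24.4 ± 5.34 CPM in 1M and 6.87 ± 3.21 CPM in sham (log2 change 1.82 ± 0.35, edgeR adjusted p = 0.00286). Nuf2 of the kinetochore was the only tested member not called (log2 change 0.52 ± 0.23, edgeR adjusted p = 0.169). Nuf2 was called without sham replicate 1 (log2 change 0.87, edgeR adjusted p = 0.00595). Of DNA replication genes 17 of 25 rose and none fell, with a median log2 change of 1.01. Mcm2, a subunit of the replicative helicase, averaged 79.7 ± 4.63 CPM in 1M and 29.2 ± 5.32 CPM in sham (log2 change 1.45 ± 0.18, edgeR adjusted p = 0.000114). Rrm2, which makes deoxynucleotides, averaged 55.2 ± 7.79 CPM in 1M and 17.9 ± 5.11 CPM in sham (log2 change 1.62 ± 0.21, edgeR adjusted p = 0.00013). Which of the sorted cell types divided was not tested.

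Promoters of mitotic genes are known for CCAAT boxes beside a cell cycle homology region, whose core TTTGAA keeps them silent outside division. The 3 promoters printed are those of mitosis genes described above, with CCAAT and TTTGAA or their reverse complements in capitals. Top2a lies at chr11:99024140-99024439 on the minus strand, Cdk1 at chr10:69352863-69353162 on the minus strand and Plk1 at chr7:122159185-122159484 on the plus strand, in GRCm38.p6.
Top2a: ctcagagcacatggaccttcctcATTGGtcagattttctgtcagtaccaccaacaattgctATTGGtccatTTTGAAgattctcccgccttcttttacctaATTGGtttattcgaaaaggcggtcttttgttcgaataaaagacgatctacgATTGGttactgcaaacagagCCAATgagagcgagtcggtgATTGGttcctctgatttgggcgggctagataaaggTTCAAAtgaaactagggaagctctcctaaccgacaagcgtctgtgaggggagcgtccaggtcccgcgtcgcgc
Cdk1: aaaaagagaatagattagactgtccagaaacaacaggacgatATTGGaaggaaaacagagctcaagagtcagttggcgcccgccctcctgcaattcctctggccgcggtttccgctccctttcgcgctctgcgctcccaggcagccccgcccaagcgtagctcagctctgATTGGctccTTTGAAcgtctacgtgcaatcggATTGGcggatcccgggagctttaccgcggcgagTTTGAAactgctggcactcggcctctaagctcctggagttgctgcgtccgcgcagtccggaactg
Plk1: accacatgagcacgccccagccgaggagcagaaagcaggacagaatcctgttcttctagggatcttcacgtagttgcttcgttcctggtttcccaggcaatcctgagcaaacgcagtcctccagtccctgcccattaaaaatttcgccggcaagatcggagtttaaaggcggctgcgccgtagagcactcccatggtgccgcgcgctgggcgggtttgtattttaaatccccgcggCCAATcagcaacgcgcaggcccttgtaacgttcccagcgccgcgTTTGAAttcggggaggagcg
Top2a held 6 CCAAT and 2 TTTGAA, Cdk1 3 and 2, and Plk1 1 of each. Of the 25 mitosis genes with a promoter in the table (of 29), 21 (84%) held CCAAT and 19 (76%) TTTGAA, and 18 (72%) held both, against 37.9%, 18.1% and 7.12% of all promoters. Of 21 DNA replication genes with a promoter, 15 (71.4%) held CCAAT and 3 (14.3%) TTTGAA.

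Inhibitors of the cell cycle and p53 targets rose in 5 of 22 tested members and fell in 2 (median log2 change 0.48, 10 higher without sham replicate 1, 3 higher without 1M replicate 3 and 1 lower without sham replicates 1 or 3 or 1M replicates 1, 2 or 3). Cdkn2a, which encodes p16 and p19ARF, averaged 7.3 ± 0.994 CPM in 1M and 0.405 ± 0.702 CPM in sham (log2 change 4.06 ± 1.02, edgeR adjusted p = 0.0152). Cdkn2a was not called without 1M replicate 3 (edgeR adjusted p = 0.0519), had a log2 change of 3.44 without sham replicate 2 and had no sham count left without sham replicate 1. Cdkn1a, which encodes p21, averaged 147 ± 8.38 CPM in 1M and 66.2 ± 21.5 CPM in sham (log2 change 1.15 ± 0.21, edgeR adjusted p = 0.00172). Fas, a death receptor, fell, with 11.4 ± 0.784 CPM in 1M and 29.2 ± 11.6 CPM in sham (log2 change -1.35 ± 0.30, edgeR adjusted p = 0.00696). In the neural stem and progenitor list 5 of 16 tested genes rose and 2 fell (median log2 change 0.26, 3 higher without 1M replicates 1 or 2 and 4 lower without sham replicates 2 or 3). Nes, nestin, averaged 73.8 ± 2.24 CPM in 1M and 28.5 ± 8.38 CPM in sham (log2 change 1.37 ± 0.20, edgeR adjusted p = 0.000353). Egfr averaged 4.1 ± 1.44 CPM in 1M and 25.4 ± 9.93 CPM in sham (log2 change -2.63 ± 0.47, edgeR adjusted p = 0.0016).

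Markers of the oligodendrocyte lineage were mostly not called, and those of precursors were the most abundant of the marker sets. Of precursor markers 2 of 14 tested genes rose and none fell (median log2 change 0.25, 4 higher without sham replicate 2 and 1 higher without 1M replicates 1, 2 or 3), and their sum was 14700 to 15000 CPM in 1M and 11500 to 14100 CPM in sham. Bcas1, which marks cells about to form myelin, averaged 258 ± 4.51 CPM in 1M and 152 ± 35.8 CPM in sham (log2 change 0.76 ± 0.18, edgeR adjusted p = 0.0114). Lhfpl3 averaged 763 ± 13.6 CPM in 1M and 541 ± 16.4 CPM in sham (log2 change 0.50 ± 0.15, edgeR adjusted p = 0.0357). Lhfpl3 was not called without 1M replicates 1, 2 or 3 (edgeR adjusted p = 0.102 to 0.112). Pdgfra averaged 2676 ± 90.3 CPM in 1M and 2315 ± 300.2 CPM in sham and was not called (log2 change 0.21 ± 0.16, edgeR adjusted p = 0.474). Of 18 tested myelin genes none was called by edgeR, and 2 had an unadjusted p under 0.05, with 1 called by DESeq2 and 1 by limma. Without sham replicate 1, 5 of them were called higher, without sham replicate 3, 3 were, and with no filter on low counts 4 were. Of neuron markers 2 of 16 rose and 2 fell (median log2 change -0.07, 1 higher without 1M replicates 1 or 2, 1 lower without sham replicate 1 or 1M replicates 1 or 3 and 0 lower without 1M replicate 2). Gap43, a growth cone protein, averaged 202 ± 15.2 CPM in 1M and 82.7 ± 18.5 CPM in sham (log2 change 1.29 ± 0.20, edgeR adjusted p = 0.000477).

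MHC class II genes, with which phagocytes and some glia present peptides to T cells, rose in 9 of 14 tested members and fell in none (6 to 11 calls with any 1 library left out, median log2 change 1.93). The presenting chain H2-Eb1 had 37.1, 21.7 and 14.6 CPM in 1M, against 7.39, 8.42 and 15 CPM in sham (log2 change 1.26 ± 0.31, edgeR adjusted p = 0.014). H2-Eb1 was not called without 1M replicate 1 (edgeR adjusted p = 0.0978). Cd74, the invariant chain, had 123, 146 and 82.2 CPM in 1M, against 19.99, 20.3 and 57.2 CPM in sham (log2 change 1.85 ± 0.35, edgeR adjusted p = 0.00227). Cd74 had a log2 change of 2.54 without sham replicate 3. Ifi30, a reductase of the loading compartment, had 36.6, 42.2 and 54.2 CPM in 1M, against 13.6, 8.25 and 8.83 CPM in sham (log2 change 2.11 ± 0.23, edgeR adjusted p = 2.27e-05). The groups did not overlap in Cd74 or Ifi30, while in H2-Eb1 the lowest 1M library lay just under the highest sham library. The costimulator Cd86 averaged 20.7 ± 1.21 CPM in 1M and 5.13 ± 3.15 CPM in sham (log2 change 2.00 ± 0.33, edgeR adjusted p = 0.00088). Cd86 had a log2 change of 2.65 without sham replicate 1. H2-Aa averaged 24.7 ± 12.3 CPM in 1M and 12.8 ± 7.27 CPM in sham and was not called (log2 change 0.96 ± 0.39, edgeR adjusted p = 0.13). H2-Aa was called without sham replicate 3 (log2 change 1.52, edgeR adjusted p = 0.011) and without 1M replicate 3 (log2 change 1.32, edgeR adjusted p = 0.0318). Ciita, the master regulator of the class, averaged 2.27 ± 0.598 CPM in 1M and 1.41 ± 1.91 CPM in sham (log2 change 0.67 ± 1.06, edgeR adjusted p = 0.773). Ciita had a log2 change of 2.67 without sham replicate 2.

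The H2-Eb1 promoter is printed for the classical layout of class II promoters, an X box upstream of a Y box that is itself a CCAAT. Capitals mark CCAAT and AACNGAT, a part of the X box, or their reverse complements, at chr17:34305617-34305916 on the plus strand in GRCm38.p6, where CCAAT occurs at 2 positions and AACNGAT at 1.
H2-Eb1: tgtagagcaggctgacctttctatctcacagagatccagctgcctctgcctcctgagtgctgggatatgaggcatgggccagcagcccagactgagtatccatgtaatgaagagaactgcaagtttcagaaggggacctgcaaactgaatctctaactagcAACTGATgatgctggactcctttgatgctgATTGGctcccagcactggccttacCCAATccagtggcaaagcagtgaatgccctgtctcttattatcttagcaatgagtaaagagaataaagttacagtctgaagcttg
Of the 9 class II genes with a promoter in the table (of 14), 5 (55.6%) held CCAAT and 4 (44.4%) AACNGAT, against 37.9% and 6.9% of all promoters, and 3 (33.3%) held both, against 2.74%.

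The cell division and class II genes can be placed in time with the 7D and 3M libraries. Against 7D, 633 of 24286 genes (2.61%) were called in 1M, 368 (1.52%) higher and 265 (1.09%) lower, and against 1M, 95 (0.391%) were called in 3M, 25 (0.103%) higher and 70 (0.288%) lower. With any 1 library left out, 122 to 218 genes were called between 1M and 7D and 7 to 55 between 3M and 1M. With the 2 groups alone, 3560 were called between 1M and 7D and 1277 between 3M and 1M. Top2a had 67.5, 33.4 and 26 CPM in sham, 371, 349.8 and 308 CPM at 7D, 182, 187 and 194 CPM at 1M, and 65.6 and 40.6 CPM in the 2 libraries at 3M. Of 29 tested mitosis genes, 11 were lower in 1M than in 7D, and 0 to 3 with any 1 library left out. In 3M, 17 were lower than in 1M, and 1 to 11 with any 1 library left out. Mki67 was lower in 3M than in 1M (log2 difference -2.03 ± 0.28, edgeR adjusted p = 0.00639) and was not called between 1M and 7D (log2 difference -0.63 ± 0.23, edgeR adjusted p = 0.199). Mki67 was not called between 3M and 1M without 3M replicate 3 (edgeR adjusted p = 0.109). H2-Eb1 had 7.39, 8.42 and 15 CPM in sham, 12.6, 15.3 and 13.5 CPM at 7D, 37.1, 21.7 and 14.6 CPM at 1M and 140.4 and 171 CPM at 3M. It was higher in 3M than in 1M (log2 difference 2.67 ± 0.34, edgeR adjusted p = 0.00449), as were H2-Ab1, H2-Aa and Cd74, that is 4 of 14 tested class II genes, and 2 to 4 with any 1 library left out. These comparisons share the 1M libraries, and the 3M group has only 2 libraries.

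**Figure D5:**
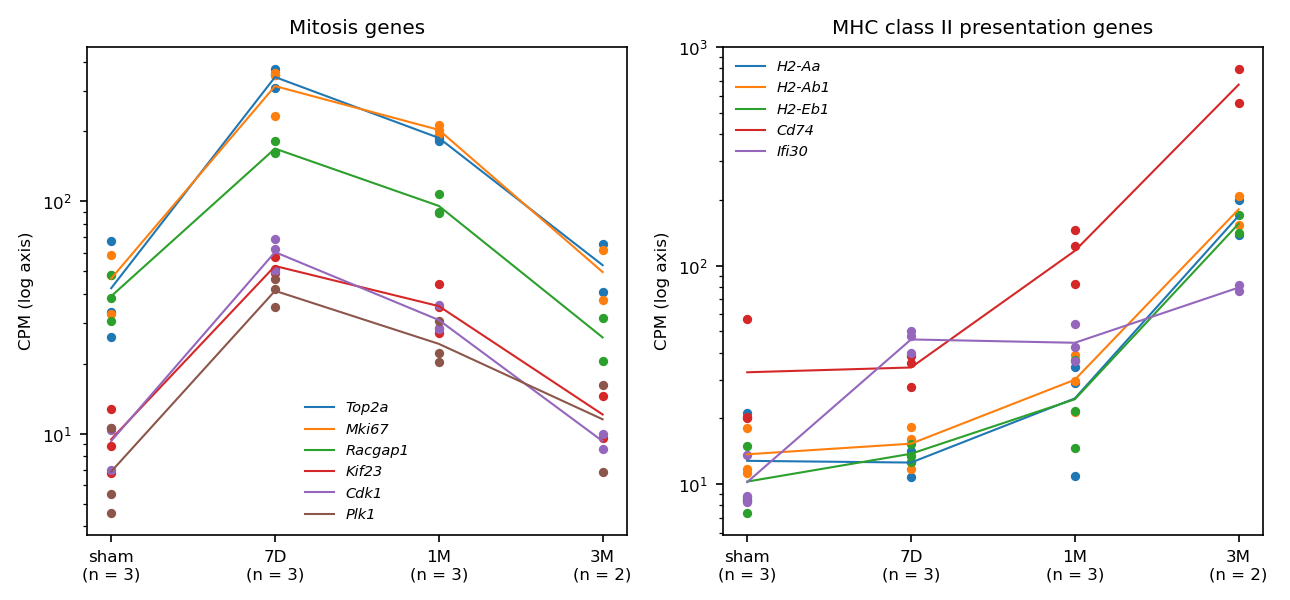
CPM of 6 mitosis genes (left) and 5 MHC class II presentation genes (right) in sorted cells of sham, 7D, 1M and 3M cords, on log axes, with 1 point per library and lines joining group means. The mitosis genes are highest at 7D or 1M and lower at 3M, and the class II genes are highest at 3M.

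Genes of several kinds differed between 1M and 7D by the naming rule. Ptgds, prostaglandin D synthase of meninges and oligodendrocytes, had 64, 101 and 59 CPM in 1M, against 1.39, 2.79 and 1.12 CPM in 7D (log2 difference 5.40 ± 1.16, edgeR adjusted p = 0.0235), and 31.3, 0.47 and 1.57 CPM in sham. Ptgds was not called between 1M and 7D with any 1 library left out (edgeR adjusted p = 0.067 to 0.124). Gpc5 had 20.8, 17.7 and 27.2 CPM in 1M, against 2.83, 1.37 and 3.29 CPM in 7D (log2 difference 3.13 ± 0.29, edgeR adjusted p = 0.000204). Mmp12 was higher in 1M than in 7D (log2 difference 3.07 ± 0.46, edgeR adjusted p = 0.0026), and so was Itgax, an integrin of activated microglia (log2 difference 2.86 ± 0.71, edgeR adjusted p = 0.0433). Itgax was not called between 1M and 7D with any 1 library left out (edgeR adjusted p = 0.103 to 0.189). Cd5l, a macrophage protein, had 3.02, 1.93 and 0.635 CPM in 1M, against 15.6, 58.4 and 31.3 CPM in 7D (log2 difference -4.23 ± 0.70, edgeR adjusted p = 0.00457), and Cd36 4.3, 1.51 and 4.04 CPM in 1M, against 27.6, 44.7 and 46.7 CPM in 7D (log2 difference -3.60 ± 0.57, edgeR adjusted p = 0.00361). Cd5l was not called between 1M and 7D without 7D replicate 2 (edgeR adjusted p = 0.0899). Col2a1, a cartilage collagen, averaged 2.91 ± 1.68 CPM in 1M and 39.7 ± 7.35 CPM in 7D (log2 difference -3.77 ± 0.49, edgeR adjusted p = 0.0014), and Angptl4, an inhibitor of lipoprotein lipase, 2.91 ± 0.733 CPM in 1M and 25.8 ± 2.16 CPM in 7D (log2 difference -3.15 ± 0.35, edgeR adjusted p = 0.000825). Of the clock list 7 genes and of the immediate early list 10 were higher in 1M than in 7D, and 3 to 6 and 4 to 8 with any 1 library left out. Rph3a, a synaptic vesicle protein, had 34.8, 22 and 26.5 CPM in 1M, against 1.13, 0.985 and 1.52 CPM in 7D (log2 difference 4.50 ± 0.31, edgeR adjusted p = 4.51e-06). In sham Rph3a averaged 61.2 CPM, above its 1M level. Nrn1, neuritin, was also higher in 1M than in 7D (log2 difference 4.03 ± 1.02, edgeR adjusted p = 0.0492). Nrn1 was not called between 1M and 7D with any 1 library left out (edgeR adjusted p = 0.139 to 0.251).

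Long non-coding RNAs were called in 110 cases higher and 138 lower. The largest rise by the rule was Gm42793, at chr5:104435121-104436372 on the plus strand (GRCm38, GENCODE M21), which lies wholly within Spp1 on the same strand. Gm42793 had 257, 345 and 348 CPM in 1M, against 0.561, 0.302 and 0 CPM in sham (log2 change 9.88 ± 0.50, edgeR adjusted p = 1.88e-08). All its 1252 bases lie within the span of Spp1, introns included, so its reads may come from Spp1 and cannot be assigned to it with certainty. Gm42793 had a log2 change of 10.68 without sham replicate 1. Gm29439, at chr7:30872733-30873333 on the plus strand, lies inside the span of Cd22, introns included, on the opposite strand. With strand handling not given, its reads may include some from Cd22. It had 675 counts in 1M and 1 in sham, a ratio of 433 with a 95% counting interval of 77.4 to 17100. AC151971.2 and Gm39793 were called with no count in sham and were at least 59.8-fold and 52.6-fold higher in 1M. Among the falls, Hoxa11os, which overlaps Hoxa11 on the opposite strand over 1418 bases, had no count in 1M and was at least 243-fold lower there, with 4.43, 8.39 and 4.54 CPM in sham (edgeR adjusted p = 0.00125). Gm28309, which overlaps Hoxd11 and Hoxd10 on the same strand, was at least 139-fold lower (edgeR adjusted p = 0.0109). Gm28309 was not called without sham replicate 2 (edgeR adjusted p = 0.0576). Gm42292 and Gm29326 were at least 158-fold and 108-fold lower, again with no count in 1M. Gm29326 was not called without 1M replicates 1, 2 or 3 (edgeR adjusted p = 0.0546 to 0.0634) and fell below the count filter without sham replicates 2 or 3. All 2451 bases of Gm29326 lie within 4930432E11Rik on the opposite strand, so its reads cannot be told from those of that gene. DESeq2 did not call Gm28309 (DESeq2 adjusted p = 0.0935) or Gm29326 (DESeq2 adjusted p = 0.0873). Of 22 tested non-coding RNAs listed by name, 2 rose and 2 fell (median log2 change -0.21, 1 higher without sham replicates 2 or 3 or 1M replicate 1, 0 higher without 1M replicates 2 or 3 and 1 lower without 1M replicates 1 or 2). Malat1, an abundant nuclear RNA, fell, with 1266 ± 286 CPM in 1M and 2401 ± 483 CPM in sham (log2 change -0.92 ± 0.22, edgeR adjusted p = 0.0106). Malat1 was not called without 1M replicate 1 (edgeR adjusted p = 0.0507) or without 1M replicate 2 (edgeR adjusted p = 0.0928). Mir99ahg, a host of microRNAs, averaged 16.8 ± 4.22 CPM in 1M and 62.5 ± 30.5 CPM in sham (log2 change -1.89 ± 0.38, edgeR adjusted p = 0.00364).

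In the epithelial and mesenchymal list 4 of 15 tested genes rose and none fell (median log2 change 0.44, 1 lower without sham replicates 1, 2 or 3). Fn1, fibronectin, had 382, 537 and 579 CPM in 1M, against 115, 50.5 and 14.9 CPM in sham (log2 change 3.05 ± 0.47, edgeR adjusted p = 0.000542). Fn1 had a log2 change of 3.92 without sham replicate 1. Twist1 had 145 counts in 1M and 1 in sham, a ratio of 93.0 with a 95% counting interval of 16.4 to 3700 (edgeR adjusted p = 0.00592), and Foxc2, with no count in sham, was at least 25.4-fold higher in 1M. Cdh2, N-cadherin, averaged 160.1 ± 15.6 CPM in 1M and 236 ± 49.2 CPM in sham (log2 change -0.56 ± 0.18, edgeR adjusted p = 0.0509). Cdh2 was called without sham replicate 2 (log2 change -0.64, edgeR adjusted p = 0.03) and without sham replicate 3 (log2 change -0.65, edgeR adjusted p = 0.0268). Snai2 averaged 6.04 ± 1.94 CPM in 1M and 2.93 ± 1.66 CPM in sham (log2 change 1.05 ± 0.53, edgeR adjusted p = 0.238). Snai2 was called without sham replicate 3 (log2 change 1.61, edgeR adjusted p = 0.0481). Neither was called with all libraries in. Erythrocyte genes were low in both groups, with sums of 17.7 to 21.3 CPM in 1M and 24.0 to 83.6 CPM in sham, and none of 5 was called by edgeR (0 at an unadjusted p under 0.05, and 0 by DESeq2 and by limma).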

How the data were processed

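RNA of tdTomato-sorted cells was measured in 11 libraries, of which the 3 of 1M and the 3 of sham carry the comparison. The table the authors deposited holds raw read counts per gene, and its library columns were matched to samples by name. The submitters' processing notes name mm10 as the build and list TopHat2 2.1.0, Cufflinks 2.2.1, FastQC and DESeq2, without saying what each tool was for. Per the labels' protocols, libraries were made with a kit that marks strand, but the counting program, its annotation and its strand setting are not given in the sources used here, so reads could not be assigned by strand. The table lists 43693 genes, and of 33489 Ensembl mouse IDs among them 33340 matched GENCODE M21 (GRCm38), which supplied exon lengths, positions and overlaps.

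Counts were tested with edgeR 4.0.16 (R 4.3.3), using TMM scaling, a filter at a minimum count of 10 (filterByExpr) and quasi-likelihood tests in 1 fit of all 11 sorted libraries, so that the 4 groups share an estimate of the spread. The contrasts were 1M over sham, 1M over 7D and 3M over 1M. P-values were adjusted over all 24286 genes tested (Benjamini-Hochberg), and a gene was called under 0.05. Simulated counts drawn from the fitted spread, with changes placed in chosen genes, were also run through the pipeline. They hold no outlying library or shift in cell makeup, so that run does not speak to either. CPM values are counts divided by TMM-scaled library totals, per kb means divided by exon length, and errors are SD (n = 3 libraries) for means and standard errors for log2 changes. Each library pooled 3 mice, and no label ties a replicate number across groups. Genes with no count in a group are given as a lower bound from a floor of 3 counts over the group. Counting intervals are exact and cover counting error only.

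Genes were named by a rule: the 12 largest rises and falls among called protein-coding genes of at least 5 CPM whose groups did not overlap, the 2 largest called rises and falls of at least 1 CPM in each of 55 gene lists with the list's first 2 members, the 4 largest rises and falls among long non-coding RNAs, and the largest differences between times. Further list members were chosen as examples after their values were seen. The lists and the question were chosen with earlier results of these data known, and no list was tested as a set. Alternatives were other scalings, filters, fits and tools (DESeq2 1.42.0, limma 3.58.1), a replicate block and leaving out each library. Promoters came from RefSeq (GRCm38.p6), 250 bases before to 50 after each start.

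Of the genes tested, 27.8% overlap exons of a gene on the opposite strand, and their counts are uncertain. Those described are Acsl1, Acsl5, Acsl6, Amigo2, Axin2, Bcas1, Car14, Cd22, Cdkn1a, Ciita, Col4a2, Cxcl10, Exoc3l4, Fdft1, Fgfr3, Fn1, Gli1, Glul, Gm29326, Gpc5, Grn, Hmgcs1, Hopx, Hoxa11os, Hspa1a, Ifi30, Il1b, Lhfpl3, Malat1, Mir99ahg, Mmp12, Mpo, Mt2, Nfia, Nfix, Nid1, Notch1, Nr3c2, Nrn1, P2ry12, Pcolce, Pdgfra, Plk1, Pltp, Prelp, Shh, Slc1a2, Slc25a18, Slc6a9, Slc7a10, Stat3 and Timp4. The unsorted cord samples of the series and comparisons of 7D or 3M with sham were not used here, and results on some genes named by the rule are not reported here.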

Additional observations from a re-analysis of the deposited data

Results flagged for a closer look

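Of 267 genes named, 39 had a change against sham at 1M that differed from the change at 7D, and 15 had a change at 3M that differed from that at 1M (edgeR adjusted p under 0.05). The test was the contrast between the 2 times, in which the shared sham libraries cancel. Of the 39, 23 were higher at 1M, and 14 stayed called whichever library was left out: Angptl4, Aqp4, Cd36, Col2a1, Fosb, Gpc5, Hsd11b1, Mmp12, Mmp3, Plod2, Rph3a, Slc7a10, Snap25 and Vegfa. The other 25 lost the call in at least 1 such fit. Of the 15, 9 were higher at 3M, and 2, H2-Ab1 and H2-Eb1, stayed called. Values below are differences of log2 changes.

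Several astrocyte genes that were low in injured cord were higher at 1M than at 7D. Slc7a10 differed by 1.53, Slc6a11 by 1.43, Hsd11b1 by 2.95 and Grin2c, a glutamate receptor subunit, by 3.09. Hsd11b1 and Grin2c were near the limit of detection at 7D, with 0.195 and 0.191 CPM. They averaged 1.45 and 1.69 CPM at 1M, against 68.0 and 51.1 CPM in sham. Others were lower at 1M than at 7D: Aqp4, the water channel, by -1.91 and Aldh1l1, a folate enzyme, by -1.80. So were Hopx by -1.34 and the BMP receptor Bmpr1b by -1.60. Nestin (Nes) and Thbs2 averaged above sham at both times and were lower at 1M than at 7D by -0.84 and -0.76. Nes averaged 28.5 CPM in sham, 132 CPM at 7D and 73.8 CPM at 1M, and Thbs2 42.9, 205 and 121 CPM in that order.

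Synaptic and secreted proteins higher at 1M than at 7D were Rph3a at 4.50, Nrn1 at 4.03, Gpc5 at 3.13, the vesicle protein Snap25 at 1.67, the chemokine Cx3cl1 at 0.97 and Ptgds at 5.40. At 1M Rph3a, Gpc5, Snap25 and Cx3cl1 averaged below sham, and Nrn1 and Ptgds above it. Rph3a averaged 61.2 CPM in sham, 1.21 CPM at 7D and 27.8 CPM at 1M, and Snap25 40.2, 8.56 and 27.2 CPM in that order. Of signalling genes, Wnt7a differed by 1.54, Dkk2 by 2.05, Nkd1 by 1.07, the growth factor Vegfa by 1.14, the receptor Cntfr by 0.68, Nr3c2 by 1.05 and Pdgfra by 0.70. Of these, Wnt7a, Vegfa, Cntfr and Nr3c2 averaged below sham at 1M, and Dkk2, Nkd1 and Pdgfra above it. Vegfa averaged 288 CPM in sham, 54.7 CPM at 7D and 121 CPM at 1M. The immediate early genes Fos and Fosb differed by 1.10 and 1.70.

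Among immune and matrix genes, Mmp12 differed by 3.07, Itgax by 2.86 and H2-Q7 by 1.59. Mmp3 had no count at 7D or in sham and averaged 9.59 CPM at 1M, and its fitted difference of 11.33 depends on the prior count and does not measure size. Lower at 1M than at 7D were Cd5l by -4.23, Cd36 by -3.60, Angptl4 by -3.15, the endothelial gene Pecam1 by -1.26, the collagens Col2a1 by -3.77 and Col4a6 by -3.00, the collagen-modifying enzyme Plod2 by -1.21, the lysosomal membrane gene Lamp2 by -0.65, Bcas1 by -0.94 and the histone gene Hist1h2ap by -5.41.

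At 3M, the class II genes H2-Aa, H2-Ab1 and H2-Eb1 were higher than at 1M by 2.77, 2.59 and 2.67, and the class I genes H2-K1 and H2-T23 by 1.16 and 1.53. Apoe was higher by 1.31, Atp6v0d2 by 2.16, the peptidase Anpep by 2.09 and Prg4, a lubricating proteoglycan, by 3.95. The division genes Ndc80, Cep55, Kif2c, Mki67 and Top2a differed by -2.70, -2.62, -2.41, -2.03 and -1.82 between 3M and 1M.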

How the results depend on the processing

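Of 212 named genes called in 1M against sham, 154 were called under every alternative and 58 lost the call in at least 1. Of 55 named genes not called, 23 were called under at least 1. No called change reversed. The count of 2927 genes was 3026 with RLE scaling, 3114 with upper quartile scaling, 3653 with no filter, 3074 with a minimum count of 30, 3332 with limma, 4050 with DESeq2 (2005 adjusted p-values were not given by it) and 2091 for changes of at least 2-fold. With the 2 groups alone 935 genes were called higher and 1024 lower in 1M. Without 1 library at a time, the count ran between 1727 and 3471, with 937 to 2154 higher and 786 to 1566 lower. The share of calls that were higher was 51.7%, and 62.1% without sham replicate 1.

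Replicate numbers did not pair the libraries: the correlations of same-numbered deviations in 1M and sham were -0.019, -0.043 and -0.003. With a replicate block, 2845 genes were called in the fit of all libraries and 1594 in the 2 groups alone (764 higher, 830 lower).

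For 1M against 7D, the 2 groups alone gave 3560 calls (1720 higher, 1840 lower), and leaving out 1 library gave 122 to 218 (83 to 152 higher, 36 to 67 lower). For 3M against 1M, the 2 groups alone gave 1277 calls (644 higher, 633 lower), the replicate block gave 16 higher, and leaving out 1 library gave 7 to 55 (3 to 11 higher, 2 to 44 lower). Where 3M was left with 1 library, that library was taken to vary like the other groups. The cause of these shifts was not tested, beyond the change of libraries, genes tested and shared spread that each fit makes.

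Total counts of 15712423 to 33968822 in sham and 3 libraries a group limit the precision. Injury, time since surgery and the makeup of the sorted cells cannot be told apart in the changes.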
